A study of Arabidopsis thaliana with 47 samples.

Results

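The Day 2 to Day 4 step of the control culture rests on 6 of the 47 RNA-seq libraries of the series, the control replicates 4 to 6 sampled at Day 4 set against the control replicates 4 to 6 sampled at Day 2. They were chosen by their labels alone. Both groups were leaf mesophyll protoplasts of Arabidopsis thaliana Columbia-0, that is, leaf cells freed of their walls by enzymes, prepared from rosette leaves of 23-day-old plants. They were embedded in alginate gel and kept in the dark in a medium with mannitol, glucose and hormones, namely 2,4-D, a synthetic auxin, at 1 mg/L and thidiazuron, which acts as a cytokinin, at 176 µg/L, so both groups carry the same hormones and, as far as the labels say, differ only by their days in culture. Cells of many gels were pooled into each library, and the study describes divisions in a small share of the protoplasts that were not in step with each other. Each value is therefore an average over cells of unlike fate, and in such bulk samples fewer cells of a type and less RNA per cell cannot be told apart. The study calls the 3 libraries of a day biological replicates. The labels do not tell whether the libraries came from separate isolations, so p-values measure the spread between these samples only.

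A mesophyll cell is a differentiated cell that carries chloroplasts and no longer divides. Freed of its wall and given auxin and cytokinin, it can rebuild a wall, enlarge and re-enter the cell cycle. D-type cyclins act with cyclin-dependent kinases early in that cycle and relieve the block that the retinoblastoma-related protein places on E2F factors, which switch on genes of DNA replication. B-type cyclins and B-type kinases act later, at the entry into mitosis, and many genes of that phase carry an element (MSA) that is bound by MYB3R factors. Pluripotent callus grown on auxin-rich medium is known for genes of the lateral root programme, such as LBD, PLETHORA and WOX factors.

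The files gave 7012225 to 10824255 mapped reads per Day 2 library and 10909708 to 14007456 per Day 4 library. Levels are in CPM, counts per M counts with library sizes adjusted by edgeR's TMM factors, for the lowest-numbered splice variant of a locus, and library values are listed in the order of replicates 4, 5 and 6. A count of 3, taken as the floor of detection, came to about 0.3 CPM at Day 2 and 0.2 CPM at Day 4. A gene was called upregulated or downregulated when its log2 fold change (log2FC, Day 4 over Day 2) exceeded 2 in size and edgeR's quasi-likelihood test gave a p and an adjusted p (Benjamini-Hochberg) that were both below 0.01. Of 25713 loci, 19043 were tested, and 1089 (5.72%) were higher and 548 (2.88%) lower at Day 4, together 8.6%, with a median log2FC of -0.03 over all genes tested. Without the fold criterion, 4409 genes (23.2%) were higher and 4647 (24.4%) lower. At an unadjusted p under 0.05, which is given for gene lists below, 5903 of the 19043 genes were higher and 6260 lower. The ranges of the 3 libraries did not overlap in 1084 of the upregulated and 533 of the downregulated genes, against 63% of all genes tested. Upregulated genes were mostly scarce at Day 2, with a median of 0.628 CPM that became 6.49 CPM, and 67 of them had no count in any Day 2 library. Downregulated genes had a median of 9.66 CPM at Day 2 and of 1.37 CPM at Day 4. Scaling by total counts in place of TMM shifted the median log2FC of all genes by 0.176 and turned the split of 1089 higher and 548 lower genes into 1239 and 369, so that the higher genes went from 66.5% to 77.1% of the calls. The log2FC values below refer to the TMM scale.

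The libraries of Day 2 were less alike than those of Day 4. On the first principal component of the 6 libraries, which held 82.2% of the variance, Day 2 replicates 4, 5 and 6 lay at -81.2, -116.7 and -39.6, and the Day 4 libraries between 62.2 and 99.5. Replicate 5 of Day 2 stood apart in transcripts of the plastid genome, whose levels summed to 24316, 66925 and 24127 CPM at Day 2 and to 20659, 13876 and 16401 CPM at Day 4. The summed level of 20 heat shock genes was 10339, 21084 and 5745 CPM at Day 2 and 5721, 6140 and 5117 CPM at Day 4. Without Day 2 replicate 5, 950 genes were higher and 347 lower, and where a gene described here lost its call without a library, or under any of the other 10 settings tried, that is given with the gene as the log2FC in that fit. Those 10 settings kept all 6 libraries and changed the test, the scaling, the block or the loci counted. Whether the state of that sample contributed to other results was not tested.

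**Figure D1:**
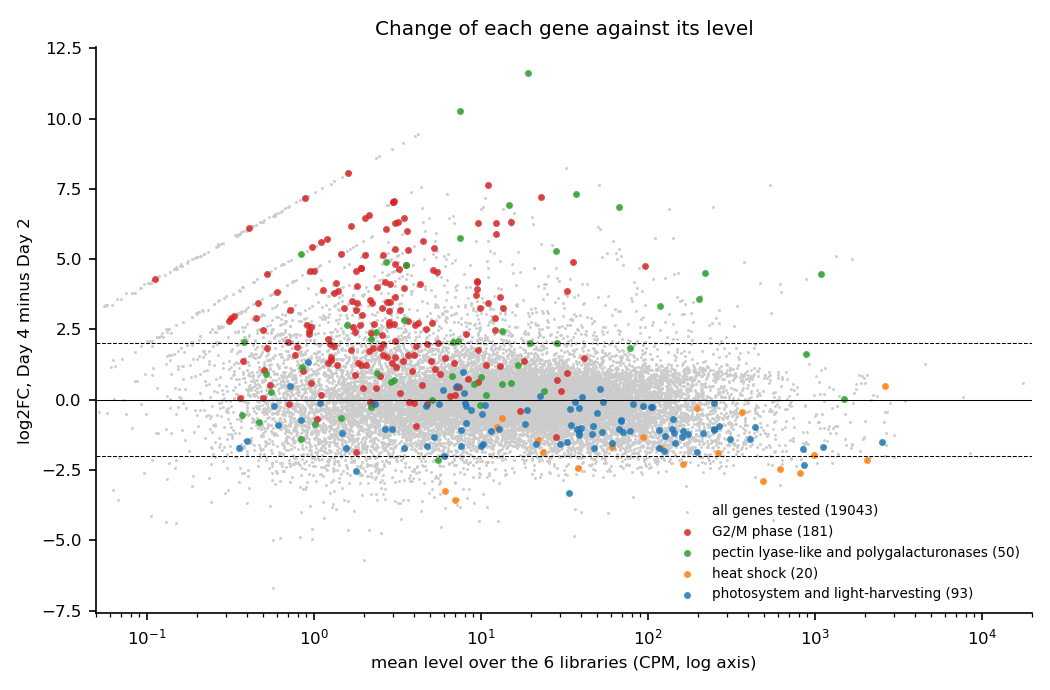
Log2 fold change from Day 2 to Day 4 of the control culture (vertical axis) against the mean level in CPM (horizontal axis, log scale) for the 19043 genes tested, 3 libraries per day. Broken lines mark the fold criterion of 2 in either direction, and colours mark 4 gene lists with their number of genes tested. Most G2/M phase genes (red) lie above the upper line, pectin lyase-like proteins and polygalacturonases (green) on both sides of it, and heat shock genes (orange) and photosystem and light-harvesting genes (blue) mostly below 0. The slanted rows of points at the left are genes with 0 or few counts at Day 2.

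The 15 largest rises included pectin lyase-like genes, a sugar exporter and a protease. AT1G10640, a pectin lyase-like protein, read at 0, 0 and 0 CPM at Day 2 and 43.3, 20.3 and 51.7 CPM at Day 4 (at least 129-fold higher at Day 4, edgeR adjusted p = 1.4e-08, against the floor of 3 counts per library). SWEET9, a sucrose exporter known from nectaries, read at 0, 0 and 0 CPM at Day 2 and 15.9, 8.73 and 21.3 CPM at Day 4 (at least 51.3-fold higher at Day 4, edgeR adjusted p = 3.9e-08), and the pectate lyase AT1G67750 at 0, 0 and 0 CPM at Day 2 and 17.3, 6.36 and 21.2 CPM at Day 4 (at least 50.2-fold higher at Day 4, edgeR adjusted p = 4.2e-07). These 3 genes had no count at Day 2 and were detected in every Day 4 library. CEP1 (AT5G50260), a papain-type protease known from dying tapetum cells, had levels of 0.168, 0.293 and 0.175 CPM at Day 2 and 46.8, 22 and 124 CPM at Day 4, a ratio of summed counts of 311, 95% counting interval 143 to 849, edgeR adjusted p = 1.4e-06. FAD-BD (AT1G30760), a berberine bridge enzyme-like protein, rose from 2.1, 0.733 and 12.6 CPM to 1187, 907 and 1111 CPM (log2FC 7.63, SE 0.67, edgeR adjusted p = 8.7e-09) and was the most abundant of the 15 largest rises at Day 4. AT2G19970, of the CAP family of small secreted proteins, rose from 1.51, 1.91 and 8.92 CPM to 514, 340.5 and 619 CPM (log2FC 6.85, SE 0.51, edgeR adjusted p = 7.7e-10). In all of these the Day 4 libraries lay above every Day 2 library, and replicate 5 was the lowest of the Day 4 libraries.

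A further 5 of the 15 carry annotations that point to the cell wall. PGAZAT (AT2G41850), the polygalacturonase ADPG2 of dehiscence and abscission zones, rose from 0.335, 0 and 0.874 CPM to 82, 42.9 and 97.3 CPM (log2FC 7.3, SE 0.57, edgeR adjusted p = 1.6e-09). AT5G14650, a pectin lyase-like protein, rose from 0.335, 0.44 and 2.45 CPM to 152, 84.7 and 166 CPM (log2FC 6.86, SE 0.61, edgeR adjusted p = 9.8e-09). AT4G13210 of the same superfamily rose from 0, 0 and 0.612 CPM to 32.4, 21.3 and 34.6 CPM (log2FC 6.92, SE 0.52, edgeR adjusted p = 5.1e-09). AT1G62760, which carries an inhibitor domain of invertases and pectin methylesterases, had levels of 0.0838, 0 and 0.262 CPM at Day 2 and 20.8, 10.3 and 31.8 CPM at Day 4, a ratio of summed counts of 153, 95% counting interval 59.6 to 563, edgeR adjusted p = 1.3e-07. CSLD5 (AT1G02730), a cellulose synthase-like protein of the forming cell plate, rose from 0, 0.293 and 0.612 CPM to 39.5, 28.7 and 68.7 CPM (log2FC 7.2, SE 0.77, edgeR adjusted p = 9.6e-08). The remaining 4 were the TRAF-like gene AT3G20370 (log2FC 7.65, SE 0.71, edgeR adjusted p = 6.6e-08), the hydroxyproline-rich AT3G02120 (a ratio of summed counts of 217, 95% counting interval 74.1 to 1055, edgeR adjusted p = 2.1e-06), the extensin-family gene AT5G22430 (a ratio of summed counts of 184, 95% counting interval 50.7 to 1524, edgeR adjusted p = 7e-07) and the cytochrome P450 gene CYP709B2 (AT2G46950, a ratio of summed counts of 120.3, 95% counting interval 51.4 to 371, edgeR adjusted p = 7.4e-08). None of the 15 lost its call when any of the 6 libraries was left out.

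The 15 largest falls were in genes of varied annotation, among them 2 acyltransferases and 2 chaperones. GPAT1 (AT1G06520), a glycerol-3-phosphate acyltransferase, fell from 99.8, 45 and 66.4 CPM to 2.87, 2.6 and 1.81 CPM (log2FC -4.86, SE 0.31, edgeR adjusted p = 1.2e-10), and GPAT5 (AT3G11430), which acts in suberin synthesis, from 20.199, 11.1 and 8.92 CPM to 1.66, 1.1 and 0.698 CPM (log2FC -3.55, SE 0.5, edgeR adjusted p = 3.6e-06). AT1G51830, a leucine-rich repeat receptor-like kinase, fell from 114, 130.2 and 80.4 CPM to 7.18, 6.94 and 5.65 CPM (log2FC -4.03, SE 0.25, edgeR adjusted p = 1.2e-10). It was at 0 to 0.244 CPM at Day 0, below every Day 2 and Day 4 library. Hsp70b (AT1G16030), a heat-inducible chaperone, fell from 1169, 1748 and 312 CPM to 61.5, 79.5 and 26.5 CPM (log2FC -4.27, SE 0.7, edgeR adjusted p = 1.9e-05), and HSP21 (AT4G27670), a small chaperone of the chloroplast, from 17.1, 19.1 and 2.71 CPM to 1.51, 1.27 and 0.419 CPM (log2FC -3.56, SE 0.74, edgeR adjusted p = 0.00026). For both chaperones, Day 2 replicate 6 lay well below the other Day 2 libraries but still above Day 4.

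SQP1 (AT5G24150), a squalene epoxidase-like enzyme, fell from 89.1, 101 and 36.3 CPM to 5.29, 6.24 and 2.65 CPM (log2FC -3.98, SE 0.44, edgeR adjusted p = 1.4e-07). AT5G48430, an aspartyl protease, fell from 91.8, 35.2 and 79.6 CPM to 3.85, 5.09 and 5.03 CPM (log2FC -3.89, SE 0.44, edgeR adjusted p = 1.9e-07), and the uncharacterized AT5G38320 from 30.1, 24.2 and 18 CPM to 1.51, 1.33 and 0.768 CPM (log2FC -4.31, SE 0.37, edgeR adjusted p = 6.4e-09). The other 7 were the exostosin-family gene AT3G42180 (log2FC -4.32), the Stig1-family gene AT1G11925 (-4.52), the transcription factor MYB45 (-3.83), the transporter AT3G21670 (-3.82), the extensin-like AT1G23720 (-3.8), the Bax inhibitor-family gene AT1G03070 (-3.74) and the kinase PK1B (-3.68). All of these calls were kept when any of the 6 libraries was left out.

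**Figure D2:**
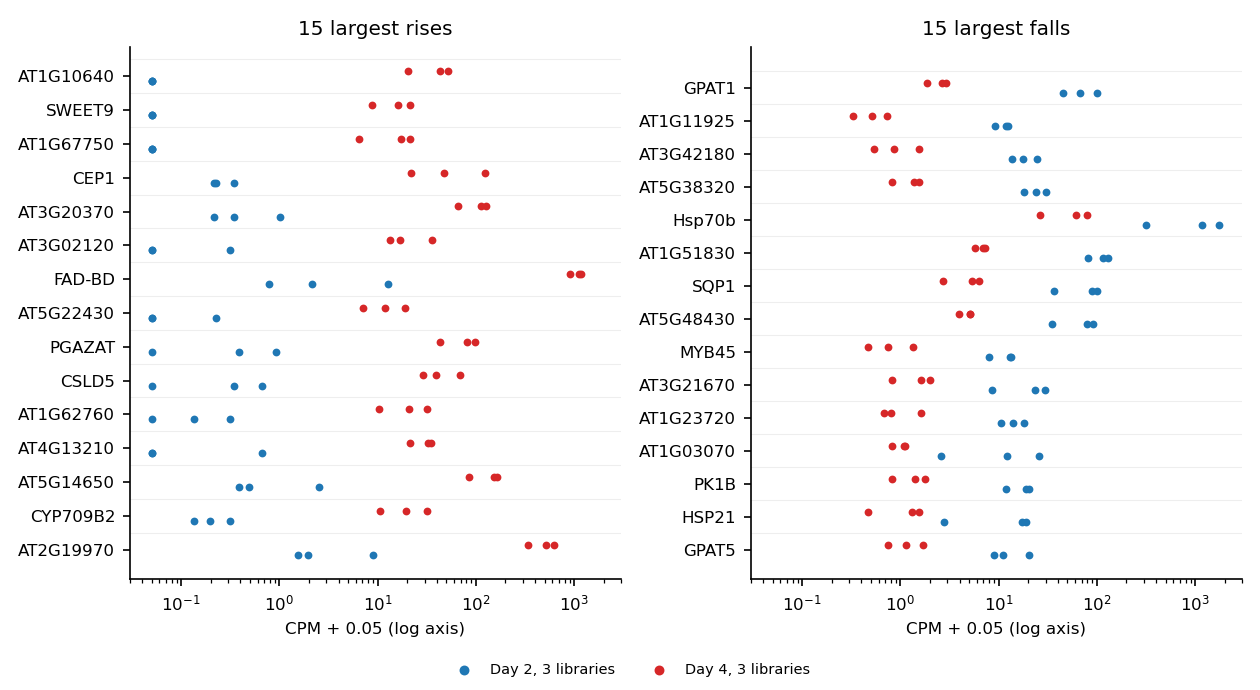
Level in CPM, plotted with 0.05 added on a log axis, in each of the 6 libraries for the 15 largest rises and the 15 largest falls, Day 2 in blue and Day 4 in red. The ranges of the days do not overlap in any of the 30 genes because the genes were chosen that way, and several rises start from 0 at Day 2.

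The share of upregulated cell cycle genes differed between the phase lists, with 3 of 24 tested core genes for G1/S, 3 of 12 for S and 19 of 39 for G2/M. Of the 24 core genes of the G1/S phase, 0 were downregulated (edgeR; 5 were lower at an unadjusted p under 0.05, and DESeq2 also called 0), with a median log2FC of 0.34. CYCD3;1 (AT4G34160), a D-type cyclin that answers to cytokinin, read at 0.838, 1.32 and 2.01 CPM at Day 2 and 13.7, 11.7 and 18.6 CPM at Day 4 (log2FC 3.39, SE 0.28, edgeR adjusted p = 4.5e-09). CYCD4;1 (AT5G65420) rose from 0.419, 0.293 and 0.35 CPM to 5.06, 4.1 and 6.49 CPM (log2FC 3.8, SE 0.3, edgeR adjusted p = 2.1e-09), and CYCD3;3 (AT3G50070) from 0.67, 0.293 and 1.22 CPM to 3.1, 4.05 and 3.21 CPM (log2FC 2.13, SE 0.38, edgeR adjusted p = 5.4e-05; no call without Day 2 replicate 5 (1.87)). For these 3 cyclins the days did not overlap. CYCD2;1 (AT2G22490), the most abundant D-type cyclin of those named, had 25, 17 and 29.4 CPM at Day 2 and 39.2, 44.4 and 31 CPM at Day 4 and did not pass the fold criterion (log2FC 0.67).

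Among the regulators upstream of replication, RBR1, E2Fa, E2Fb and CDKA;1 remained short of the fold criterion. RBR1 (AT3G12280), the retinoblastoma-related repressor, read at 59.8, 64.6 and 61.5 CPM at Day 2 and 68.2, 65.5 and 73.1 CPM at Day 4 (log2FC 0.15, edgeR adjusted p = 0.26). E2Fa (AT2G36010), an activating E2F factor, had 3.94, 3.96 and 4.28 CPM at Day 2 and 6.04, 6.42 and 8.31 CPM at Day 4 (log2FC 0.77, SE 0.19, edgeR adjusted p = 0.0012), and E2Fb (AT5G22220) had 23, 45.7 and 14.4 CPM at Day 2 and 12.6, 13.8 and 12.5 CPM at Day 4 (log2FC -1.07, SE 0.24, edgeR adjusted p = 0.00069). The levels of E2Fa were thus higher and those of E2Fb lower at Day 4, neither past the fold criterion. CDKA;1 (AT3G48750), the main kinase of the plant cell cycle, had 11.1, 10.7 and 14.1 CPM at Day 2 and 32.6, 29.4 and 32.8 CPM at Day 4 (log2FC 1.4, SE 0.13, edgeR adjusted p = 1.7e-08). Of 10 tested CDK inhibitors, 1 was upregulated, SIM (AT5G04470, means of 0.195 to 2.18 CPM), known from endoreduplicating trichomes. KRP1 (log2FC 0.07), KRP2 (0.68) and KRP6 (0.42), which bind cyclin-CDK complexes, were not called.

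Some genes of DNA replication were upregulated. Of 169 tested genes on the S phase list, which the study took from earlier work as it did the G2/M list, 32 were upregulated and 1 downregulated (median log2FC 0.77), and of 12 core S phase genes 3 were upregulated (median 1.45). MCM3 (AT5G46280), a subunit of the replicative helicase, rose from 3.18, 1.03 and 5.51 CPM to 24.4, 21.5 and 28.6 CPM (log2FC 2.85, SE 0.33, edgeR adjusted p = 2.4e-07). PCNA1 (AT1G07370), the sliding clamp, rose from 1.76, 1.91 and 4.2 CPM to 12.5, 12.5 and 15.8 CPM (log2FC 2.34, SE 0.3, edgeR adjusted p = 1.2e-06), CDC6 (AT2G29680), which loads the helicase, from 0.67, 0.44 and 1.31 CPM to 4.15, 4.05 and 5.86 CPM (log2FC 2.45, SE 0.38, edgeR adjusted p = 1.1e-05), and CYCA3;1 (AT5G43080), an S phase cyclin, from 0.335, 0.147 and 0.612 CPM to 1.81, 2.25 and 2.3 CPM (log2FC 2.4, SE 0.41, edgeR adjusted p = 2.9e-05). Each of these 4 was above its Day 2 range in all 3 Day 4 libraries. Other genes of the same machinery, picked after their values were seen, were the helicase subunits MCM2 (means 5.12 to 25.2 CPM, log2FC 2.28), MCM4 (4.45 to 23 CPM, log2FC 2.33), MCM5 (6.62 to 29.1 CPM, log2FC 2.1), MCM6 (2.49 to 11.2 CPM, log2FC 2.11) and PRL, which is MCM7 (4.15 to 24.1 CPM, log2FC 2.48), and TSO2 (9.69 to 76.3 CPM, log2FC 2.94), a subunit of ribonucleotide reductase. The largest rise on the S phase list was not in a replication gene: BGL2 (AT3G57260), a beta-1,3-glucanase known as a defence marker, read at 0.922, 0.733 and 2.62 CPM at Day 2 and 91.6, 49.1 and 166 CPM at Day 4 (log2FC 6.08, SE 1.15, edgeR adjusted p = 9.8e-05). Among members with at least 3 CPM, the next were AT4G30410, annotated as a DNA-binding factor (log2FC 5.12, SE 0.55, edgeR adjusted p = 1e-07), AT3G23740 (log2FC 3.44, SE 0.32, edgeR adjusted p = 6.2e-08) and AT2G24970, annotated as a spindle and kinetochore-associated protein (log2FC 3.25, SE 0.53, edgeR adjusted p = 1.9e-05). The downregulated member was AT3G58770 (means 2.09 to 0.468 CPM, log2FC -2.05). The S phase list summed to 2874.8, 2995.7 and 2475.8 CPM at Day 2 and 3005, 2935.1 and 3159.7 CPM at Day 4, with days that overlapped.

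Histone genes rose in part. Of 8 tested H3 genes 3 were upregulated (median log2FC 1.77), of 8 H4 genes 1 (1.44), of 13 H2A genes 2 (0.45) and of 10 H2B genes 0 (0.34; edgeR, with 6 higher and 3 lower at an unadjusted p under 0.05, and 0 called by DESeq2). By the adjusted p alone all 8 H4 genes were higher, beside 23.2% of all genes. For H3 5 were higher and 0 lower, for H2A 5 and 1, and for H2B 4 and 2. The H4 genes summed to 130.6 to 176.7 CPM at Day 2 and 369.9 to 421.1 CPM at Day 4. HTR2 (AT1G09200), coding for H3, rose from 15.9, 11.7 and 26 CPM to 91.9, 88.7 and 107 CPM (log2FC 2.4, SE 0.19, edgeR adjusted p = 2.4e-09), and HTR13 (AT5G10390) from 3.02, 2.64 and 5.77 CPM to 15.2, 17.5 and 20.24 CPM (log2FC 2.17, SE 0.3, edgeR adjusted p = 2.2e-06). HTA11 (AT3G54560), an H2A.Z variant, rose from 1.93, 0.88 and 3.41 CPM to 13.4, 13.1 and 17.38 CPM (log2FC 2.73, SE 0.29, edgeR adjusted p = 9.7e-08). HTR9 (AT5G10400, log2FC 2.02; no call without Day 2 replicate 4 (1.96), Day 2 replicate 5 (1.77) or Day 4 replicate 6 (1.92)), HTA6 (AT5G59870, 2.1; no call without Day 2 replicate 5 (1.95)) and the H4 gene AT3G46320 (2; no call without Day 2 replicate 4 (1.87), Day 2 replicate 5 (1.94) or Day 4 replicate 6 (1.96), nor with the replicate block (2) or by the likelihood-ratio test (2)) were close to the fold criterion. Copies of a histone gene are nearly identical, so the counts of single copies are uncertain. Of 12 tested genes of DNA methylation and demethylation, the chromatin remodeller DDM1 (AT5G66750) rose from 3.1, 4.69 and 3.67 CPM to 16.5, 15.3 and 19.96 CPM (log2FC 2.2, SE 0.24, edgeR adjusted p = 1.1e-07) and the maintenance methyltransferase MET1 (AT5G49160) from 13.5, 8.5 and 21.5 CPM to 49.9, 55 and 74.8 CPM (log2FC 2.02, SE 0.24, edgeR adjusted p = 3.7e-07; no call without Day 2 replicate 4 (1.99), Day 2 replicate 5 (1.78) or Day 4 replicate 6 (1.85)). The demethylase gene DML3 (AT4G34060) fell from 3.6, 3.23 and 2.27 CPM to 0.453, 0.694 and 0.349 CPM (log2FC -2.55, SE 0.42, edgeR adjusted p = 1.9e-05).

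The G2/M phase list held the highest share of upregulated genes of all lists with over 20 tested members. Of 181 tested genes, 107 were upregulated and 0 downregulated (edgeR; 4 were lower at an unadjusted p under 0.05, and DESeq2 called 110 higher and 0 lower), with a median log2FC of 2.66. Of 39 tested core genes of that phase, 19 were upregulated and 1 downregulated. CYCB1;2 (AT5G06150), a mitotic cyclin, rose from 0.335, 1.03 and 0.175 CPM to 7.63, 6.24 and 17.7 CPM (log2FC 4.54, SE 0.71, edgeR adjusted p = 1.3e-05). CDC20.1 (AT4G33270), an activator of the anaphase-promoting complex, rose from 1.34, 1.91 and 2.53 CPM to 20.7, 12.8 and 39.1 CPM (log2FC 3.64, SE 0.56, edgeR adjusted p = 9.1e-06). CDKB2;1 (AT1G76540), a plant-specific mitotic kinase, rose from 0.335, 0.293 and 0.35 CPM to 4.08, 2.08 and 5.93 CPM (log2FC 3.55, SE 0.57, edgeR adjusted p = 1.6e-05). In these genes replicate 6 was the highest and replicate 5 the lowest Day 4 library, and both lay above all of Day 2.

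Several mitotic cyclins were at or below 3 counts in every Day 2 library. CYCB2;4 (AT1G76310) read at 0.0838, 0 and 0.0874 CPM at Day 2 and 4.08, 2.83 and 9.07 CPM at Day 4, a ratio of summed counts of 78.4, 95% counting interval 21.5 to 651, edgeR adjusted p = 2.4e-05. CYCB1;3 (AT3G11520) had 0, 0.147 and 0.175 CPM at Day 2 and 3.7, 2.54 and 5.58 CPM at Day 4, a ratio of summed counts of 38.8, 95% counting interval 13.1 to 190.02, edgeR adjusted p = 2.4e-06. CYCB2;2 (AT4G35620) had 0.251, 0.293 and 0.262 CPM at Day 2 and 4.31, 3.99 and 6.91 CPM at Day 4, a ratio of summed counts of 18.9, 95% counting interval 9.44 to 44.4, edgeR adjusted p = 1.1e-06. All 3 cyclins were thus hardly detected at Day 2 and present in every Day 4 library. CYCA1;1 (AT1G44110) remained under 1 CPM at Day 4, with 0.982, 0.751 and 0.838 CPM (a ratio of summed counts of 12.8, 95% counting interval 3.3 to 109, edgeR adjusted p = 0.00041). CYCB1;1 (AT4G37490) rose from 0.503, 0.586 and 0.262 CPM to 1.28, 1.62 and 3.07 CPM (log2FC 2.17, SE 0.55, edgeR adjusted p = 0.0017; no call without Day 2 replicate 6 (1.9) or Day 4 replicate 6 (1.74)). The B-type kinases CDKB1;1 (AT3G54180, log2FC 2.14, SE 0.5, edgeR adjusted p = 0.00078; no call without Day 2 replicate 4 (2), Day 2 replicate 6 (1.74) or Day 4 replicate 6 (1.94), nor in the 6 libraries alone (2.17)) and CDKB2;2 (AT1G20930, log2FC 2.1, SE 0.44, edgeR adjusted p = 0.0003; no call without Day 2 replicate 5 (1.94) or Day 4 replicate 6 (1.68), nor in the 6 libraries alone (2.15)) were as close to the criterion. On the same list, AT3G12870 had no count at Day 2 and 2.49, 1.97 and 5.24 CPM at Day 4 (at least 10.8-fold higher at Day 4, edgeR adjusted p = 5.5e-06), and AT3G15550 had 0, 0 and 0.0874 CPM at Day 2 and 3.63, 3.41 and 11 CPM at Day 4, a ratio of summed counts of 178, 95% counting interval 31.6 to 7044, edgeR adjusted p = 0.00012.

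Part of the genes of the spindle and the cell plate was upregulated as well. The summed level of the spindle and cytokinesis list did not follow the calls. It was 641.7, 720.1 and 506.8 CPM at Day 2 and 644.7, 604.9 and 894.4 CPM at Day 4, with days that overlapped. Of 34 tested genes of spindle and cytokinesis, 15 were upregulated and 0 downregulated (edgeR; 4 lower at an unadjusted p under 0.05, DESeq2 0), and of 27 kinesins 10 and 0 (edgeR; 1 lower at an unadjusted p under 0.05, DESeq2 0). KN (AT1G08560), the syntaxin KNOLLE of the cell plate, rose from 1.17, 1.17 and 1.57 CPM to 12, 10.6 and 29.7 CPM (log2FC 3.71, SE 0.64, edgeR adjusted p = 3.6e-05). AUR1 (AT4G32830), an Aurora kinase of the spindle, rose from 0.335, 0.733 and 0.35 CPM to 4.91, 3.53 and 8.45 CPM (log2FC 3.65, SE 0.52, edgeR adjusted p = 3.8e-06), and MAD2 (AT3G25980), of the spindle checkpoint, from 0.335, 0.44 and 0.437 CPM to 5.51, 2.89 and 11.1 CPM (log2FC 3.98, SE 0.58, edgeR adjusted p = 5e-06). The phragmoplast kinesins POK2 (AT3G19050, log2FC 4.39, SE 0.48, edgeR adjusted p = 1.4e-07) and PAKRP1L (AT3G23670, log2FC 3.46, SE 0.53, edgeR adjusted p = 8.9e-06) rose as well. A pair of kinesin-like genes was close to 0 at Day 2, AT4G26660 with 0.251, 0.147 and 0.0874 CPM at Day 2 and 7.4, 4.97 and 9.21 CPM at Day 4 (a ratio of summed counts of 42.5, 95% counting interval 18 to 132, edgeR adjusted p = 1.5e-07) and AT5G55520 with 0, 0 and 0.0874 CPM at Day 2 and 3.7, 2.37 and 6.77 CPM at Day 4 (a ratio of summed counts of 126, 95% counting interval 22.3 to 4997, edgeR adjusted p = 2.8e-06).

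MYB3R factors, which bind the MSA element, did not move as one group. MYB3R3 (AT3G09370), known as a repressor, was the core G2/M gene that fell, with 36.3, 67.7 and 20.9 CPM at Day 2 and 8.69, 12.2 and 8.66 CPM at Day 4 (log2FC -2.06, SE 0.28, edgeR adjusted p = 1.9e-06; no call without Day 2 replicate 5 (-1.53), Day 4 replicate 4 (-1.95) or Day 4 replicate 6 (-1.95), nor under 5 of the other 10 settings (-1.83 to -1.99)). MYB3R5 (AT5G02320), also known as a repressor, had 11.4, 14.4 and 7.08 CPM at Day 2 and 3.85, 2.77 and 2.79 CPM at Day 4 (log2FC -1.78, SE 0.23, edgeR adjusted p = 1.1e-06) and was called, at -2.0, only without Day 2 replicate 6. MYB3R1 (AT4G32730) had 21, 25.1 and 22.7 CPM at Day 2 and 17.601, 15.7 and 13 CPM at Day 4 (log2FC -0.57, SE 0.14, edgeR adjusted p = 0.0011). MYB3R4 (AT5G11510), known as an activator, had 4.36, 13.2 and 2.36 CPM at Day 2 and 8.91, 8.27 and 13.6 CPM at Day 4, with days that overlapped (log2FC 0.72, edgeR adjusted p = 0.13). The values of MYB3R1, MYB3R3 and MYB3R5 were thus lower in every Day 4 library, whereas those of MYB3R4 were not ordered by day.

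Promoters of the upregulated G2/M genes often held the MSA core, given here as CAACGG or TAACGG on either strand. In the 250 bases before the RefSeq start of each gene (TAIR10.1), the core was present in 11.7% of the 18597 tested genes with a promoter, in 53.3% of the 107 upregulated G2/M genes and in 35.1% of the 74 G2/M genes that were not called. Among the 944 upregulated genes on neither cell-cycle list the share was 11.8%, close to that of all genes. The E2F site, searched as TTTCCCGC, TTTGGCGC, TTTCCCGG or TTTGCCGC on either strand, was present in 1.76% of all promoters, in 46.9% of the 32 upregulated S phase genes, in 19.1% of the 136 S phase genes that were not called and in 1.91% of the upregulated genes on neither list. A match describes the letters in that window and not a bound site. Among the genes named above, CDC20.1, CDKB2;1, CYCB2;4, CDKB1;1, CYCA1;1 and POK2 held no MSA core in that window. PCNA1, CDC6 and CYCA3;1 held no E2F site. The stretches below were taken from genes named above that did hold a match. They run 5′ to 3′ on the strand of the gene, with matches to the MSA core in capitals.
CYCB1;2 (chr5:1861704-1861792, minus strand): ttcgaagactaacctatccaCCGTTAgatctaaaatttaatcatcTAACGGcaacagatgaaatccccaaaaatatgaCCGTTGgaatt
CYCB1;3 (chr3:3627288-3627357, minus strand): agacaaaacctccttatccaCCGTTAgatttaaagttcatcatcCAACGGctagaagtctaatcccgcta
CYCB2;2 (chr4:16901404-16901519, plus strand): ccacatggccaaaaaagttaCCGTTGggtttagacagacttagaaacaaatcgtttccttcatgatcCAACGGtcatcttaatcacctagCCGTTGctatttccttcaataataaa
PAKRP1L (chr3:8519044-8519113, plus strand): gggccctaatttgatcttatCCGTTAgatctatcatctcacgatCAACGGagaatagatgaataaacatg
KN (chr1:2711001-2711033, minus strand): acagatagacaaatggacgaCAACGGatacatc
AUR1 (chr4:15842344-15842389, plus strand): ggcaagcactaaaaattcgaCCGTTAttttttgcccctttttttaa

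In CYCB1;2 and CYCB1;3 an inverted core (CCGTTA) was followed by a forward core after a similar spacing, and the same order was seen in PAKRP1L. With 3 matches shown each, CYCB1;2 and CYCB2;2 held more than the 1 match of KN and of AUR1. Of the 107 upregulated G2/M genes, 23.4% held 2 or more cores, against 1.46% of all promoters. For 3 genes of the S phase list and for CYCD3;3, a core G1/S gene, the capitals mark the E2F site.
MCM3 (chr5:18773849-18773896, minus strand): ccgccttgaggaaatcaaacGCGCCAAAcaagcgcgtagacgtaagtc
AT3G23740 (chr3:8554840-8554913, minus strand): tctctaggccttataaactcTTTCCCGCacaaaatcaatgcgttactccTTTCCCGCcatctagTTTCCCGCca
AT2G24970 (chr2:10621308-10621347, minus strand): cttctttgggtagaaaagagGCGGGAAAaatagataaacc
CYCD3;3 (chr3:18566911-18566958, minus strand): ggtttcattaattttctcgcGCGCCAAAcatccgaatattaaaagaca

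AT3G23740 held 3 sites within the 74 bases before its start, the others 1 site each. MCM3 and CYCD3;3 carried the same letters, GCGCCAAA, which is TTTGGCGC on the other strand.

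**Figure D3:**
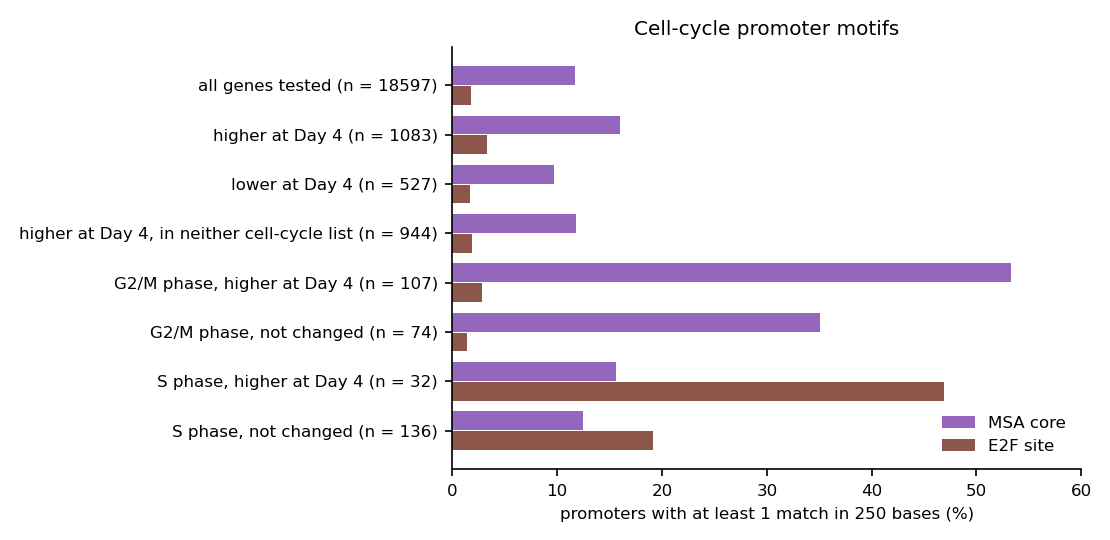
Share of promoters (percent, 250 bases upstream of the RefSeq start) with the MSA core and with the E2F site, for all genes tested and for groups of genes by list and call. The upregulated G2/M genes stand at 53.3% for the MSA core and the upregulated S phase genes at 46.9% for the E2F site, whereas upregulated genes on neither list lie next to all genes.

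Several lists of cell wall genes held many calls. Of 50 tested pectin lyase-like proteins and polygalacturonases, 23 were upregulated and 1 downregulated (median log2FC 1.72), and of 12 alpha-expansins, which loosen walls, 8 and 0 (median 2.67, or 2.41 with genes at 0 set to their bound; edgeR, with 0 lower at an unadjusted p under 0.05 and 0 by DESeq2). Without Day 2 replicate 4, 5 expansins were called. EXPA4 (AT2G39700), the most abundant of those named, rose from 30.3, 25.2 and 49 CPM to 281, 305 and 293 CPM (log2FC 3.07, SE 0.32, edgeR adjusted p = 7.8e-08). EXPA15 (AT2G03090) rose from 0.503, 1.32 and 1.31 CPM to 18.8, 20.9 and 23.4 CPM (log2FC 4.38, SE 0.52, edgeR adjusted p = 1.1e-06), and EXPA14 (AT5G56320) from 0.0838, 0 and 0.874 CPM to 3.7, 3.12 and 2.86 CPM (log2FC 3.12, SE 0.63, edgeR adjusted p = 0.0002). EXPA8 (AT2G40610) had 0.251, 0.147 and 0.262 CPM at Day 2 and 3.32, 3.47 and 2.79 CPM at Day 4, a ratio of summed counts of 13.8, 95% counting interval 6.55 to 35.1, edgeR adjusted p = 7.7e-07. AT1G23460 was the pectin lyase-like gene that fell, from 9.72, 12.9 and 4.72 CPM to 2.57, 2.08 and 1.33 CPM (log2FC -2.16, SE 0.36, edgeR adjusted p = 2.4e-05; no call without Day 2 replicate 5 (-1.86) or Day 4 replicate 6 (-1.92), nor with total counts (-1.96)).

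Of 41 tested class III peroxidases, which cross-link or loosen wall polymers, 15 were upregulated and 1 downregulated (median log2FC 1.37). RCI3 (AT1G05260) rose from 0.587, 0 and 0.262 CPM to 30.9, 24.7 and 33.2 CPM (log2FC 6.44, SE 0.65, edgeR adjusted p = 4.3e-08), AT2G18980 from 0.168, 0 and 0.962 CPM to 45.9, 26 and 48.2 CPM (log2FC 6.51, SE 0.69, edgeR adjusted p = 3.1e-07), and AT3G32980 from 0.419, 0.293 and 0.175 CPM to 7.33, 3.01 and 21.4 CPM (log2FC 5.08, SE 0.82, edgeR adjusted p = 3e-05). AT5G14130 had 0.168, 0 and 0.262 CPM at Day 2 and 3.93, 2.54 and 10.5 CPM at Day 4, a ratio of summed counts of 33.1, 95% counting interval 14 to 103, edgeR adjusted p = 3.9e-05. In the last pair the Day 4 libraries spread over several fold, with replicate 6 the highest. AT5G64100 was the peroxidase that fell, from 12.8, 7.92 and 16.7 CPM to 1.66, 2.43 and 0.698 CPM (log2FC -2.95, SE 0.46, edgeR adjusted p = 1.1e-05). The summed level of the peroxidases did not follow the count of calls. It was 12503, 6660 and 14300.3 CPM at Day 2 and 11439, 11492 and 9976 CPM at Day 4.

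Of 22 tested xyloglucan endotransglucosylases, which cut and rejoin xyloglucan, 5 were upregulated and 1 downregulated, and in a fit of the 6 libraries alone 2 were upregulated. XTH4 (AT2G06850) rose from 5.2, 4.4 and 11.5 CPM to 41.5, 21.8 and 67.2 CPM (log2FC 2.59, SE 0.47, edgeR adjusted p = 7.2e-05), XTH19 (AT4G30290) from 47.6, 16.9 and 42.6 CPM to 236, 227 and 141 CPM (log2FC 2.48, SE 0.33, edgeR adjusted p = 1.4e-06), and XTH9 (AT4G03210) from 0.503, 0 and 1.66 CPM to 5.67, 5.03 and 24.7 CPM (log2FC 3.84, SE 0.79, edgeR adjusted p = 0.00023; no call in the 6 libraries alone (3.89)). XTH10 (AT2G14620) fell from 20.4, 15 and 14.2 CPM to 3.85, 3.7 and 1.54 CPM (log2FC -2.44, SE 0.34, edgeR adjusted p = 7.2e-06). Among 62 tested genes of wall biosynthesis, 8 were upregulated and 3 downregulated (median log2FC 0.77). The cellulose synthases of the primary wall did not pass the fold criterion: CESA1 had 135, 108 and 164 CPM at Day 2 and 304, 253 and 387 CPM at Day 4 (log2FC 1.22, SE 0.2, edgeR adjusted p = 1.6e-05), CESA3 had 109, 82.4 and 149 CPM at Day 2 and 268, 217 and 363 CPM at Day 4 (log2FC 1.32, SE 0.23, edgeR adjusted p = 3.4e-05), and CESA6 had 125, 97.5 and 161 CPM at Day 2 and 217, 187 and 239 CPM at Day 4 (log2FC 0.74, SE 0.17, edgeR adjusted p = 0.00059). In all 3 the Day 4 libraries were above those of Day 2.

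Cellulose synthase-like genes changed in both directions. CSLG2 (AT4G24000) rose from 3.77, 1.32 and 7.95 CPM to 49, 38.6 and 66 CPM (log2FC 3.47, SE 0.33, edgeR adjusted p = 2.1e-08), and CSLB1 (AT2G32610) had 0, 0.293 and 0 CPM at Day 2 and 5.59, 1.62 and 11.4 CPM at Day 4, a ratio of summed counts of 89.2, 95% counting interval 24.4 to 740.1, edgeR adjusted p = 2e-05. CSLB4 (AT2G32540) fell from 11.4, 8.94 and 8.57 CPM to 1.28, 0.809 and 0.558 CPM (log2FC -3.45, SE 0.28, edgeR adjusted p = 2.4e-09). CSLB3 (AT2G32530) fell from 4.44, 5.86 and 3.67 CPM to 0.831, 0.925 and 1.12 CPM (log2FC -2.25, SE 0.38, edgeR adjusted p = 3.2e-05). These members of the CSLB family thus moved in opposite directions. The receptor-like kinase AT5G62710, which is on the study's wall list, rose (log2FC 3.43, SE 0.54, edgeR adjusted p = 1.2e-05). RGP4 (AT5G50750), of the reversibly glycosylated polypeptides, fell (log2FC -2.12, SE 0.28, edgeR adjusted p = 1.1e-06; no call without Day 2 replicate 6 (-1.91) or Day 4 replicate 6 (-1.92), nor with total counts (-1.97)).

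Among 132 tested genes whose product name holds extensin, arabinogalactan or hydroxyproline-rich, a list that also takes in genes of other function such as ELF3 and TIC40, 22 were upregulated and 4 downregulated (median log2FC 0.55). AGP4 (AT5G10430) had 0, 0.147 and 0.262 CPM at Day 2 and 11, 10.2 and 19.5 CPM at Day 4, a ratio of summed counts of 101, 95% counting interval 39.2 to 372, edgeR adjusted p = 2.4e-08, and AGP31 (AT1G28290) rose from 0.168, 0 and 0.874 CPM to 22.4, 14.1 and 36.2 CPM (log2FC 5.9, SE 0.54, edgeR adjusted p = 1.3e-08). The most abundant member at Day 2 moved the other way: EXT4 (AT1G76930) fell from 5678, 2548 and 6183 CPM to 1257, 1229 and 992 CPM (log2FC -2.05, SE 0.35, edgeR adjusted p = 3e-05; no call without Day 2 replicate 4 (-1.89), Day 2 replicate 6 (-1.8) or Day 4 replicate 6 (-1.93), nor under 5 of the other 10 settings (-1.91 to -2)). EXT3 (AT1G21310), the most abundant member at Day 4 and chosen after its values were seen, had means of 2659 and 6482 CPM and was not called (log2FC 1.29). AT2G40113, of the Ole e 1 family, fell as well (log2FC -2.97, SE 0.44, edgeR adjusted p = 6.6e-06). Of 50 tested aspartyl proteases, 13 were upregulated and 1 downregulated, led by AT5G19100 with 0.168, 0 and 1.22 CPM at Day 2 and 35.1, 27 and 59.9 CPM at Day 4 (log2FC 6.24, SE 0.48, edgeR adjusted p = 1.3e-09). AT5G19110 rose from 10.9, 6.6 and 17.7 CPM to 207, 166 and 351 CPM (log2FC 4.33, SE 0.4, edgeR adjusted p = 1.5e-08) and AT5G10080 from 0.251, 0.293 and 0.35 CPM to 5.51, 3.76 and 8.17 CPM (log2FC 4.22, SE 0.49, edgeR adjusted p = 3.1e-07). AT5G10760 had 3.4, 1.91 and 5.58 CPM at Day 4 (a ratio of summed counts of 26.6, 95% counting interval 10.2 to 98.8, edgeR adjusted p = 0.00049).

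Some upregulated genes reached a high level at Day 4. The genes of this paragraph were taken by their Day 4 level, that is, after their values were seen. AT2G38380, a peroxidase, rose from 115, 40.02 and 150.1 CPM to 3133, 2353 and 4235 CPM (log2FC 4.99, SE 0.55, edgeR adjusted p = 1.5e-07), AT4G15160, a proline-rich protein with a lipid-transfer domain, from 29.1, 11.9 and 188 CPM to 2625, 1984 and 3263 CPM (log2FC 5.09, SE 0.77, edgeR adjusted p = 7.7e-06), and the pectate lyase-like AT3G27400 from 76.6, 43.8 and 158 CPM to 2284, 1755 and 2212 CPM (log2FC 4.48, SE 0.49, edgeR adjusted p = 1.5e-07). Each was at least 10 times as high in every Day 4 library as in any Day 2 library. AT3G18280, a small lipid-transfer protein, rose from 47.9, 28.4 and 125 CPM to 1093, 679 and 1753 CPM (log2FC 4.12, SE 0.54, edgeR adjusted p = 1.2e-06), and CEL3 (AT1G71380), a cellulase, from 39.2, 33.7 and 76.3 CPM to 798, 612 and 1249 CPM (log2FC 4.15, SE 0.5, edgeR adjusted p = 5.1e-07). XYL1 (AT1G68560), which trims xyloglucan, rose from 106, 56.1 and 184 CPM to 1019, 910.04 and 1028 CPM (log2FC 3.09, SE 0.29, edgeR adjusted p = 1.6e-08). In all of them Day 2 replicate 5 was the lowest library, and the days did not overlap.

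A part of the auxin transport and response genes was upregulated in a culture that held 2,4-D on both days. Of 8 tested PIN and AUX/LAX carriers, 6 were upregulated and 0 downregulated (median log2FC 2.54; edgeR, with 0 lower at an unadjusted p under 0.05 and 0 by DESeq2). PIN7 (AT1G23080), an efflux carrier, rose from 7.54, 4.1 and 13 CPM to 58, 55 and 72.3 CPM (log2FC 2.87, SE 0.28, edgeR adjusted p = 3.1e-08). The influx carriers AUX1 (AT2G38120) and LAX2 (AT2G21050) rose from 0.67, 0.293 and 1.92 to 11.9, 10.8 and 16.7 CPM (log2FC 3.64, SE 0.41, edgeR adjusted p = 1.8e-07) and from 2.85, 1.61 and 3.93 to 25.8, 23.8 and 25.8 CPM (log2FC 3.1, SE 0.3, edgeR adjusted p = 8.8e-08). All 3 Day 4 libraries of each of these 3 carriers lay several fold above the highest Day 2 library.

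Of 22 tested Aux/IAA genes, repressors that auxin degrades and whose transcription it induces, 8 were upregulated and 0 downregulated (median log2FC 1.0, or 0.85 with genes at 0 set to their bound; edgeR, with 3 lower at an unadjusted p under 0.05 and 0 called by DESeq2). IAA19 (AT3G15540) rose from 33.4, 31.7 and 24.7 CPM to 139.7, 111 and 131 CPM (log2FC 2.09, SE 0.19, edgeR adjusted p = 1.6e-08; no call without Day 2 replicate 6 (1.99)), IAA5 (AT1G15580) from 11.8, 6.45 and 10.9 CPM to 51.6, 54.7 and 34.7 CPM (log2FC 2.25, SE 0.26, edgeR adjusted p = 2.6e-07), and IAA29 (AT4G32280) from 0.587, 0 and 0.699 CPM to 6.65, 8.03 and 7.05 CPM (log2FC 3.86, SE 0.43, edgeR adjusted p = 5.4e-07). IAA17 (AT1G04250) was at the edge (log2FC 2.1, SE 0.49, edgeR adjusted p = 0.0011; no call without Day 2 replicate 4 (1.86), Day 2 replicate 5 (1.68) or Day 4 replicate 6 (1.84), nor in the 6 libraries alone (2.15)). IAA14 (AT4G14550) was low on both days, with 0.168, 0.147 and 0.175 CPM at Day 2 and 1.28, 0.925 and 1.33 CPM at Day 4 (a ratio of summed counts of 7, 95% counting interval 2.81 to 22.5, edgeR adjusted p = 0.00071). The family did not move as one. IAA3 (AT1G04240) had 1.68, 1.61 and 0.787 CPM at Day 2 and 1.44, 1.56 and 0.838 CPM at Day 4, with overlapping days (log2FC -0.06), and IAA18 (AT1G51950) had 47.1, 64.9 and 35.9 CPM at Day 2 and 22.3, 21.8 and 16.2 CPM at Day 4, lower in every Day 4 library (log2FC -1.29, SE 0.16, edgeR adjusted p = 5.9e-07).

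The activators and the auxin enzymes differed among themselves. ARF19 (AT1G19220), an activating auxin response factor, had 15.3, 24.6 and 19.4 CPM at Day 2 and 52.2, 59.2 and 63.9 CPM at Day 4 (log2FC 1.58, SE 0.2, edgeR adjusted p = 1.1e-06), and its close relative ARF7 (AT5G20730) had 73.9, 83.3 and 57.6 CPM at Day 2 and 42.8, 48.2 and 42.2 CPM at Day 4 (log2FC -0.69, SE 0.17, edgeR adjusted p = 0.0011), both short of the fold criterion. GH3.1 (AT2G14960), of a family that conjugates auxin to amino acids, rose from 2.51, 1.03 and 5.51 CPM to 142, 143 and 109.9 CPM (log2FC 5.36, SE 0.42, edgeR adjusted p = 1.6e-09), and 1 more of 9 tested GH3 and DAO genes was upregulated, DAO2 (AT1G14120, means 0.0279 to 2.45 CPM). The summed level of that list did not follow these calls. It was 3174.6, 2389 and 3960.7 CPM at Day 2 and 3138.7, 3438.4 and 2436.7 CPM at Day 4, with days that overlapped. Genes of the indole-3-pyruvate route of auxin synthesis were at the floor: YUC1 had 0 counts in all libraries but 1 of Day 4, YUC4 had none at Day 2 and 0.0755, 0.173 and 0.0698 CPM at Day 4, and TAA1 had none at Day 4, so none of the 3 was tested. TAR2 (AT4G24670) had 3.35, 1.47 and 2.27 CPM at Day 2 and 2.19, 2.49 and 0.768 CPM at Day 4 (log2FC -0.41, edgeR adjusted p = 0.45). By contrast CYP79B2 (AT4G39950), which makes indole-3-acetaldoxime, was abundant, with 532, 470.4 and 555 CPM at Day 2 and 705, 774 and 422 CPM at Day 4 (log2FC 0.29, edgeR adjusted p = 0.27), and CYP79B3 (AT2G22330) had 14.1, 14.7 and 21.5 CPM at Day 2 and 31.8, 26 and 18.7 CPM at Day 4 (log2FC 0.6). In both, Day 4 replicate 6 was the lowest Day 4 library and did not exceed the Day 2 range.

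Several transcription factors of callus and of root founder cells were upregulated from low levels. All 3 tested LBD factors of callus were called. LBD29 (AT3G58190) rose from 0.168, 0 and 0.524 CPM to 6.19, 3.76 and 5.24 CPM (log2FC 4.2, SE 0.58, edgeR adjusted p = 5.5e-06), LBD18 (AT2G45420) from 0.0838, 0.147 and 0.35 CPM to 6.19, 5.66 and 6.84 CPM (log2FC 4.89, SE 0.52, edgeR adjusted p = 2.9e-07). LBD16 (AT2G42430) rose from 2.35, 1.03 and 2.1 CPM to 8.61, 8.9 and 10.1 CPM (log2FC 2.26, SE 0.25, edgeR adjusted p = 1.8e-07). These factors are known as targets of ARF7 and ARF19 in lateral root formation. WOX5 (AT3G11260), of the root stem cell niche, rose from 0.168, 0 and 0.699 CPM to 7.03, 5.43 and 9.49 CPM (log2FC 4.43, SE 0.52, edgeR adjusted p = 3e-07), WOX11 (AT3G03660), of adventitious root founder cells, from 0.168, 0 and 0.35 CPM to 4.99, 4.1 and 4.12 CPM (log2FC 4.39, SE 0.44, edgeR adjusted p = 1.6e-07). WOX4 (AT1G46480), of the cambium, rose from 0.0838, 0 and 0.612 CPM to 3.85, 2.14 and 5.38 CPM (log2FC 3.77, SE 0.52, edgeR adjusted p = 2.5e-06). Of 7 tested WOX genes these 3 were called.

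PLT3 (AT5G10510), an AP2 factor of root meristems, rose from 0.335, 0.147 and 1.22 CPM to 10.3, 10.1 and 15.8 CPM (log2FC 4.25, SE 0.38, edgeR adjusted p = 9.8e-09), and PLT5 (AT5G57390) from 0.503, 0.293 and 0.262 CPM to 2.34, 1.85 and 4.26 CPM (log2FC 2.91, SE 0.51, edgeR adjusted p = 4.6e-05). PLT7 (AT5G65510) had 6.62, 4.54 and 6.29 CPM at Day 2 and 6.95, 7.74 and 5.51 CPM at Day 4 and overlapping days (log2FC 0.19). ESR1 (AT1G12980), a factor of shoot regeneration, rose from 0.251, 0 and 0.787 CPM to 29.99, 25.6 and 34.6 CPM (log2FC 6.21, SE 0.46, edgeR adjusted p = 5e-09), and WIND3 (AT1G36060), a wound-induced factor, from 0.838, 0.88 and 2.1 CPM to 30.1, 24.4 and 35.3 CPM (log2FC 4.5, SE 0.45, edgeR adjusted p = 1.5e-07). They were the 2 called of 9 tested AP2/ERF factors of wounding and regeneration. WIND1 (AT1G78080) was already abundant, with 288, 353 and 307 CPM at Day 2 and 286, 299 and 236 CPM at Day 4 (log2FC -0.21), and ERF115 (AT5G07310) had 4.11, 5.42 and 1.84 CPM at Day 2 and 1.21, 2.14 and 1.95 CPM at Day 4 (log2FC -1.04), neither called. The shares among these families stand beside 5.72% of all genes, and families of 3 to 9 tested genes allow no finer reading. Of 8 tested genes of pericycle and root identity, 4 were upregulated, among them PHB (AT2G34710, log2FC 2.57, SE 0.37, edgeR adjusted p = 3.7e-06) and SCZ (AT1G46264, log2FC 2.7, SE 0.47, edgeR adjusted p = 6.1e-05) beside WOX5.

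Of 10 tested cytokinin oxidases and receptors, 4 were called, beside 8.6% of all genes, 1 higher and 3 lower. CKX3 (AT5G56970), a cytokinin oxidase, rose from 8.97, 7.48 and 9.09 CPM to 61.9, 58.8 and 64 CPM (log2FC 2.84, SE 0.19, edgeR adjusted p = 2.5e-10). CKX2 (AT2G19500) had 10.5, 8.94 and 7.52 CPM at Day 2 and 2.72, 2.6 and 1.26 CPM at Day 4 (log2FC -2.02, SE 0.32, edgeR adjusted p = 2.2e-05) and CKX4 (AT4G29740) had 86.3, 76.2 and 76.7 CPM at Day 2 and 23.3, 22.5 and 13.4 CPM at Day 4 (log2FC -2.01, SE 0.34, edgeR adjusted p = 2.4e-05). Both falls were at the edge of the fold criterion (for CKX2 no call without Day 2 replicate 4 (-1.87) or Day 4 replicate 6 (-1.73), nor under 7 of the other 10 settings (-1.85 to -2), for CKX4 no call without Day 2 replicate 4 (-1.93) or Day 4 replicate 6 (-1.78), nor under 7 of the other 10 settings (-1.84 to -1.98)). With CKX7 (AT5G21482, means of 1.4 to 0.307 CPM), these were the 3 downregulated genes, and with total-count scaling 0 were. The type-A response regulators ARR5 (AT3G48100) and ARR7 (AT1G19050), primary targets of cytokinin, had 13.7, 14.2 and 13.1 CPM at Day 2 and 5.67, 8.38 and 4.82 CPM at Day 4 (log2FC -1.11, SE 0.23, edgeR adjusted p = 0.00024) and 51.3, 39.3 and 45.6 CPM at Day 2 and 28.3, 38.7 and 24.9 CPM at Day 4 (log2FC -0.57, SE 0.18, edgeR adjusted p = 0.0084). Of 9 tested type-A regulators, 1 was upregulated, ARR15 (AT1G74890, means 0.328 to 1.72 CPM), a gene chosen after its values were seen.

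**Figure D4:**
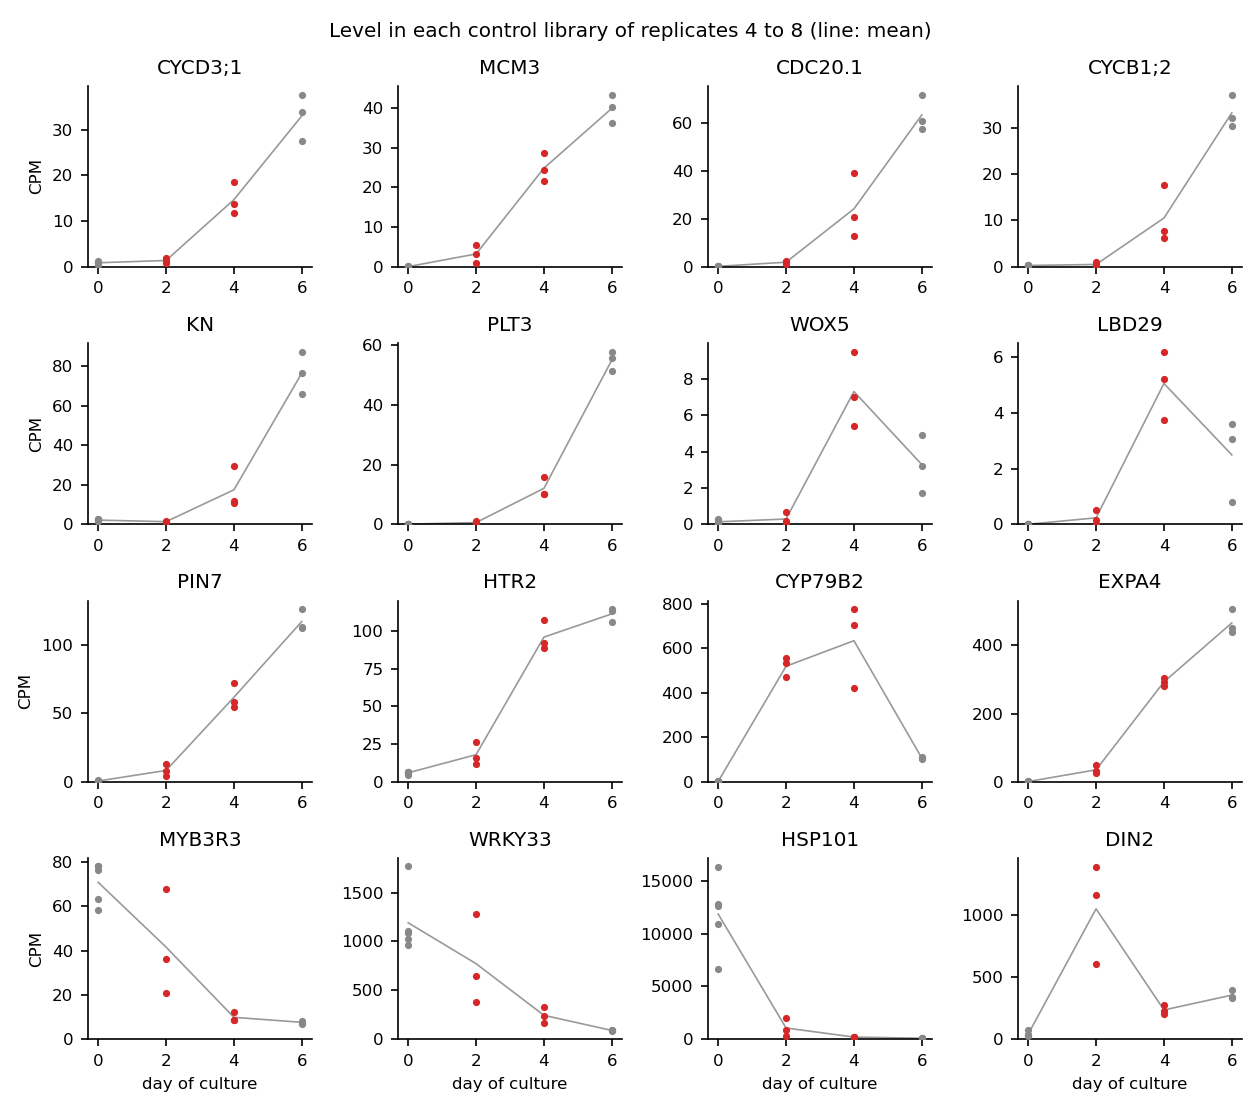
Level in CPM of 16 genes in each control library of replicates 4 to 8, at Day 0 (5 libraries), Day 2, Day 4 and Day 6 (3 libraries each), with a line through the means. Genes of the cell cycle were low until Day 2 and higher at Day 4, whereas WRKY33, HSP101 and MYB3R3 were lower at Day 4 than at Day 2.

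The ER body is a defence compartment filled with beta-glucosidases. Of 11 tested genes on that list, 7 were upregulated, 5 without Day 2 replicate 4 or Day 4 replicate 6, and 1 downregulated (median log2FC 2.47, or 2.1 with genes at 0 set to their bound). BGLU23 (AT3G09260), the main ER body glucosidase PYK10 of roots, rose from 0.838, 3.66 and 3.15 CPM to 128, 78.7 and 159 CPM (log2FC 5.63, SE 0.64, edgeR adjusted p = 2.2e-07), and NAI2 (AT3G15950), which builds the compartment, from 1.84, 2.79 and 5.42 CPM to 136, 92.8 and 147 CPM (log2FC 5.2, SE 0.47, edgeR adjusted p = 1.3e-08). GLL23 (AT1G54010), a GDSL-type lipase, rose from 1.42, 0.44 and 6.47 CPM to 29.9, 26.2 and 34 CPM (log2FC 3.32, SE 0.51, edgeR adjusted p = 8.3e-06), and the plant defensin-like gene LCR69 (AT2G02100) from 6.03, 7.77 and 20.9 CPM to 44.3, 47.2 and 104 CPM (log2FC 2.47, SE 0.43, edgeR adjusted p = 4.5e-05; no call without Day 4 replicate 6 (1.98)). BGLU18 (AT1G52400), a glucosidase of wound-induced ER bodies in leaves, had 47, 18.18 and 39.6 CPM at Day 2 and 11.9, 3.81 and 10.6 CPM at Day 4 (log2FC -2.02, SE 0.42, edgeR adjusted p = 0.00027; no call without Day 2 replicate 4 (-1.72), Day 2 replicate 6 (-1.9) or Day 4 replicate 5 (-1.61), nor under 9 of the other 10 settings (-1.87 to -2)).

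Markers of cell death and senescence split. Of 21 tested genes, 5 were upregulated and 1 downregulated (median log2FC -0.32), beside 5.72% and 2.88% of all genes. By the adjusted p alone 7 were higher and 7 lower. The summed level of the list did not follow the calls and was lower in every Day 4 library. It was 2682.8, 3316 and 2482.3 CPM at Day 2 and 1545.1, 1550 and 1459.3 CPM at Day 4. Beside CEP1, the nuclease BFN1 (AT1G11190) rose from 0.168, 0.44 and 0.437 CPM to 4.61, 1.73 and 11 CPM (log2FC 4.06, SE 0.72, edgeR adjusted p = 5.1e-05), the ribonuclease RNS3 (AT1G26820) from 0.168, 0 and 0.35 CPM to 3.55, 2.25 and 25.7 CPM (log2FC 5.64, SE 1.21, edgeR adjusted p = 0.00035; no call in the 6 libraries alone (5.7)), and SAG29 (AT5G13170), a sucrose transporter, had 0.251, 0 and 0 CPM at Day 2 and 7.33, 3.47 and 18.5 CPM at Day 4, a ratio of summed counts of 94.7, 95% counting interval 32.2 to 461, edgeR adjusted p = 3.1e-05. Day 4 replicate 6 was the highest library for these 3 genes and for CEP1. NAP (AT1G69490), a NAC factor of leaf senescence, had 24.5, 27.4 and 11.5 CPM at Day 2 and 4.08, 4.33 and 6.91 CPM at Day 4 (log2FC -2.04, SE 0.33, edgeR adjusted p = 1.7e-05), at the edge of the fold criterion (no call without Day 2 replicate 4 (-1.88), Day 2 replicate 5 (-1.82), Day 4 replicate 4 (-1.87) or Day 4 replicate 5 (-1.89), nor under 7 of the other 10 settings (-1.83 to -2)). SAG12, the protease of late leaf senescence, was at the floor on both days, with 0.0838, 0 and 0 CPM and 0, 0.0578 and 0.0698 CPM, and was not tested.

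Of 25 tested genes of the vacuole, aquaporins and pumps, 3 were upregulated and 0 downregulated (edgeR; 5 lower at an unadjusted p under 0.05, and DESeq2 called 5 higher and 0 lower). TIP2;1 (AT3G16240), a tonoplast aquaporin, rose from 23.3, 27.3 and 35.7 CPM to 168, 111 and 271 CPM (log2FC 2.67, SE 0.39, edgeR adjusted p = 4.8e-06). PIP2;5 (AT3G54820), of the plasma membrane, rose from 0.251, 1.32 and 2.27 CPM to 11.5, 9.77 and 25.3 CPM (log2FC 3.6, SE 0.43, edgeR adjusted p = 4.1e-07). PIP2;7 (AT4G35100) rose from 40.7, 51.7 and 71.2 CPM to 206, 161 and 367 CPM (log2FC 2.16, SE 0.42, edgeR adjusted p = 0.00012; no call without Day 4 replicate 6 (1.77)). Of 32 tested jasmonate genes, AOC4 (AT1G13280) and ST2A (AT5G07010), a jasmonate sulfotransferase, rose (log2FC 3.63, SE 0.32, edgeR adjusted p = 9.1e-09 and log2FC 3.41, SE 0.38, edgeR adjusted p = 1.5e-07), whereas AOC2 (AT3G25770) fell from 931, 1668 and 578 CPM to 228, 252 and 174 CPM (log2FC -2.28, SE 0.33, edgeR adjusted p = 4e-06; no call without Day 2 replicate 5 (-1.79)). These 3 were the calls of that list, 9.38% beside 8.6% of all genes. By the adjusted p alone 3 jasmonate genes were higher and 10 lower, beside 23.2% and 24.4% of all genes. The list summed to 8565.9, 10987.5 and 8179.9 CPM at Day 2 and 5928, 6227.9 and 6368.6 CPM at Day 4. AOC2 and AOC4 code for the same step of jasmonate synthesis and moved in opposite directions. Glutathione transferases did the same: of 30 tested, GSTU6 (AT2G29440) rose from 5.53, 6.74 and 24.2 CPM to 254, 199 and 374 CPM (log2FC 4.48, SE 0.43, edgeR adjusted p = 2.4e-08) and GSTF5 (AT1G02940, log2FC 3.39, SE 0.39, edgeR adjusted p = 2.9e-07) rose too, while GSTF8 (AT2G47730, log2FC -2.26, SE 0.34, edgeR adjusted p = 6.4e-06; no call without Day 2 replicate 5 (-1.79)), GSTU25 (AT1G17180, log2FC -2.36, SE 0.3, edgeR adjusted p = 9.6e-07), GSTU18 (AT1G10360, log2FC -2.25, SE 0.3, edgeR adjusted p = 1.7e-06) and GSTU22 (AT1G78340, log2FC -2.22, SE 0.4, edgeR adjusted p = 5.3e-05; no call without Day 2 replicate 4 (-1.97) or Day 4 replicate 5 (-1.89)) fell.

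Ribosomal protein genes were mostly higher by a small margin, whereas genes of respiration were mixed. Of 304 tested ribosomal protein genes, 1 passed the fold criterion, AT5G02440 (means 0.421 to 2.71 CPM), but 211 were higher and 22 lower by the adjusted p alone (median log2FC 0.79, beside 23.2% and 24.4% of all genes), and their summed level went from 18479 to 31773 CPM at Day 2 to 43493 to 44531 CPM at Day 4. Of 38 tested proteasome subunits, 0 passed the fold criterion in either direction (edgeR; 25 higher and 3 lower at an unadjusted p under 0.05, and 0 called by DESeq2), and 22 were higher by the adjusted p alone. Of 113 tested genes of the TCA cycle and the respiratory chain, 0 were called (edgeR; 53 higher and 30 lower at an unadjusted p under 0.05, 45 and 18 by the adjusted p alone, and 0 called by DESeq2), with a median of 0.27. Of 22 genes whose product name begins with tubulin, which include FtsZ genes of plastid division and folding cofactors, 3 were upregulated and 0 downregulated (edgeR; 0 lower at an unadjusted p under 0.05, DESeq2 0), TUB3 (AT5G62700, log2FC 2.43, SE 0.25, edgeR adjusted p = 5.3e-08), TUB7 (AT2G29550, log2FC 2.29, SE 0.25, edgeR adjusted p = 1.5e-07) and TUB1 (AT1G75780, log2FC 3.03, SE 0.44, edgeR adjusted p = 4.2e-06).

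Chaperones of the heat shock response were among the falls. Of 20 tested heat shock genes, 8 were downregulated and 0 upregulated (median log2FC -1.87; edgeR, with 1 higher at an unadjusted p under 0.05 and 0 by DESeq2). HSP17.6 (AT5G12030), a small cytosolic chaperone, fell from 847, 1516 and 237 CPM to 119.7, 184 and 49.1 CPM (log2FC -2.88, SE 0.61, edgeR adjusted p = 0.00032; no call in the 6 libraries alone (-2.84)). HSP22.0 (AT4G10250), of the endoplasmic reticulum, fell from 10.4, 20.5 and 2.27 CPM to 1.13, 0.925 and 1.33 CPM (log2FC -3.24, SE 0.69, edgeR adjusted p = 0.00037). HSP17.4 (AT3G46230) had 1162, 2703 and 367 CPM at Day 2 and 189.8, 427 and 80.2 CPM at Day 4, with days that overlapped (log2FC -2.6, SE 0.64, edgeR adjusted p = 0.0013; no call without Day 2 replicate 5 (-1.71) or Day 4 replicate 6 (-2.18), nor in the 6 libraries alone (-2.56)). In every one of these the order of the Day 2 libraries was the same, replicate 5 the highest and replicate 6 the lowest. HSFA2 (AT2G26150), the factor that sustains the response, had 84.6, 280.3 and 37.5 CPM at Day 2 and 42.3, 74.6 and 41.7 CPM at Day 4 (log2FC -1.33, not called). The count of 8 rested on Day 2 replicate 5, the library with the most plastid transcripts: without it 3 heat shock genes were called and the median was -1.06, and a fit of the 6 libraries alone also called 3. HSP101 (AT1G74310), a disaggregase taken here for its level after its values were seen, fell from 876, 2028 and 251 CPM to 176, 241 and 157 CPM (log2FC -2.46, SE 0.51, edgeR adjusted p = 0.00028; no call without Day 2 replicate 5 (-1.56), nor in the 6 libraries alone (-2.42)).

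WRKY factors of stress and defence, factors that bind W-box sequences, were lower in part. Of 23 tested, 4 were downregulated and 0 upregulated (median log2FC -1.31; edgeR, with 6 higher at an unadjusted p under 0.05 and 0 by DESeq2). WRKY29 (AT4G23550) fell from 81.5, 49.4 and 58.9 CPM to 11.9, 12.1 and 10.2 CPM (log2FC -2.48, SE 0.35, edgeR adjusted p = 3e-06) and WRKY22 (AT4G01250) from 126, 169 and 67 CPM to 20.09, 30.00 and 17 CPM (log2FC -2.42, SE 0.28, edgeR adjusted p = 3.2e-07). WRKY11 (AT4G31550, log2FC -2.24, SE 0.28, edgeR adjusted p = 7e-07; no call without Day 2 replicate 5 (-1.88)) and WRKY28 (AT4G18170, log2FC -2.2, SE 0.29, edgeR adjusted p = 1.4e-06; no call without Day 2 replicate 5 (-1.78), nor with total counts (-1.97)) fell too, and without Day 2 replicate 5 the count was 2. WRKY33 (AT2G38470), a regulator of camalexin synthesis, had 649.6, 1283 and 384 CPM at Day 2 and 239, 329 and 162 CPM at Day 4, lower in every Day 4 library but short of the fold criterion (log2FC -1.67, SE 0.33, edgeR adjusted p = 0.00017). Its target PAD3 (AT3G26830), the last enzyme of camalexin synthesis, had 299.6, 224 and 314 CPM at Day 2 and 603, 568 and 383 CPM at Day 4, higher in every Day 4 library (log2FC 0.89, SE 0.23, edgeR adjusted p = 0.0017). Of 14 camalexin genes 0 were called (edgeR; 3 higher and 4 lower at an unadjusted p under 0.05, DESeq2 0).

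The lists of abscisic acid and dehydration and of sugar starvation held falls and no rises. Of 29 tested in the first list, 4 were downregulated and 0 upregulated (median log2FC -1.2; edgeR, with 3 higher at an unadjusted p under 0.05 and 0 by DESeq2), and without Day 2 replicate 5 the count was 1. COR47 (AT1G20440), a dehydrin, fell from 1179, 2171 and 697 CPM to 330.5, 362 and 248 CPM (log2FC -2.1, SE 0.4, edgeR adjusted p = 0.0001; no call without Day 2 replicate 5 (-1.58) or Day 4 replicate 6 (-1.94), nor in the 6 libraries alone with the replicate block (-1.93) or with total counts (-1.87)). COR15B (AT2G42530) fell from 31.4, 47.1 and 11.3 CPM to 6.65, 7.46 and 4.47 CPM (log2FC -2.25, SE 0.39, edgeR adjusted p = 4e-05; no call without Day 2 replicate 5 (-1.78)). ABF4 (AT3G19290), a factor of abscisic acid response, fell from 131, 206 and 88.1 CPM to 30.5, 37.1 and 37.2 CPM (log2FC -2.02, SE 0.22, edgeR adjusted p = 1.5e-07; no call without Day 2 replicate 5 (-1.65) or Day 4 replicate 4 (-1.9), nor under 9 of the other 10 settings (-1.79 to -1.99)). RD22 (AT5G25610, means of 1.12 to 0.13 CPM) was the other member called. Of 21 sugar starvation genes, 3 were downregulated and 0 upregulated (median -1.38; edgeR, with 1 higher at an unadjusted p under 0.05 and 0 by DESeq2). DIN2 (AT3G60140), a dark-induced beta-glucosidase, fell from 1156, 1386 and 599.8 CPM to 275, 198 and 229 CPM (log2FC -2.16, SE 0.4, edgeR adjusted p = 7.6e-05; no call without Day 2 replicate 5 (-1.9), nor with total counts (-1.95)). The serine-rich protein gene SIS (AT5G02020) fell (log2FC -2.18, SE 0.3, edgeR adjusted p = 2.1e-06; no call without Day 2 replicate 5 (-1.78) or Day 4 replicate 6 (-1.94), nor with total counts (-1.96)). KMD4 (AT3G59940), a kelch F-box protein, fell (log2FC -2.04, SE 0.32, edgeR adjusted p = 1.4e-05; no call without Day 2 replicate 4 (-1.97), Day 2 replicate 5 (-1.78), Day 4 replicate 4 (-1.88) or Day 4 replicate 5 (-1.87), nor under 7 of the other 10 settings (-1.82 to -2)). ASN1 (AT3G47340), the dark-induced asparagine synthetase, had 604, 772 and 232 CPM at Day 2 and 151, 116 and 154 CPM at Day 4 (log2FC -1.93, SE 0.48, edgeR adjusted p = 0.0015) and was called, at -2.27, only without Day 2 replicate 6.

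Many transcripts of photosynthesis were lower in small steps. Of 93 tested photosystem and light-harvesting genes, 4 were downregulated and 0 upregulated (median log2FC -1.03; edgeR, with 2 higher at an unadjusted p under 0.05 and 0 by DESeq2), but 46 were lower and 1 higher by the adjusted p alone, beside 24.4% and 23.2% of all genes. Their summed level was 11683 to 21236 CPM at Day 2 and 6210 to 6968 CPM at Day 4. PSBQ-LIKE1 (AT1G14150), of the NADH dehydrogenase-like complex of thylakoids, fell from 2.35, 4.1 and 2.8 CPM to 0.529, 0.578 and 0.419 CPM (log2FC -2.53, SE 0.47, edgeR adjusted p = 8.9e-05), and PnsL1 (AT2G39470) of the same complex had 8.88, 12.9 and 7.26 CPM at Day 2 and 1.81, 3.24 and 1.95 CPM at Day 4 (log2FC -2, SE 0.34, edgeR adjusted p = 2.9e-05; no call without Day 2 replicate 5 (-1.76), Day 4 replicate 4 (-1.83) or Day 4 replicate 6 (-1.86), nor under 7 of the other 10 settings (-1.81 to -1.98)). The plastid-encoded psbG (ATCG00430) fell from 1026, 2233 and 1085 CPM to 309, 302 and 252 CPM (log2FC -2.33, SE 0.24, edgeR adjusted p = 7.5e-08; no call without Day 2 replicate 5 (-1.87)). psbM (ATCG00220) had 1.68, 169 and 12.7 CPM at Day 2 and 13.7, 0.925 and 3.7 CPM at Day 4, with overlapping days (log2FC -3.33, SE 1.03, edgeR adjusted p = 0.0079; no call without Day 2 replicate 5 (-0.26), Day 4 replicate 5 (-2.77) or Day 4 replicate 6 (-3.07), nor under 4 of the other 10 settings (-1.94 to -3.29)).

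All 11 mesophyll markers were detected in every library, with summed levels of 1384 to 2251 CPM at Day 2 and 675 to 718 CPM at Day 4. At an unadjusted p under 0.05, 6260 of all 19043 genes tested were lower at Day 4, and so were all 11 markers (median log2FC -1.24). Of these, 2 passed the fold criterion, the carbonic anhydrase CA1 (AT3G01500) with 106, 243 and 98.3 CPM at Day 2 and 23.57, 36.5 and 23.7 CPM at Day 4 (log2FC -2.41, SE 0.32, edgeR adjusted p = 1.9e-06; no call without Day 2 replicate 5 (-1.86)) and the Rubisco subunit RBCS1B (AT5G38430) with 75.3, 194 and 92.1 CPM at Day 2 and 25.7, 36.5 and 27.2 CPM at Day 4 (log2FC -2.01, SE 0.3, edgeR adjusted p = 7.5e-06; no call without Day 2 replicate 5 (-1.49), Day 4 replicate 4 (-1.89) or Day 4 replicate 6 (-1.93), nor under 9 of the other 10 settings (-1.78 to -1.98)). LHCB1.2 (AT1G29910), a light-harvesting protein, had 89.3, 85.6 and 100.2 CPM at Day 2 and 34.7, 30.3 and 28.8 CPM at Day 4 (log2FC -1.55, SE 0.4, edgeR adjusted p = 0.0019), and RBCS1A (AT1G67090) had 249, 443 and 284 CPM at Day 2 and 183, 192 and 233 CPM at Day 4 (log2FC -0.68, edgeR adjusted p = 0.054). Both families hold near-identical copies, so single members are uncertain. The plastid sigma factors SIG5 (AT5G24120, log2FC -2.01, SE 0.25, edgeR adjusted p = 6.2e-07; no call without Day 2 replicate 5 (-1.73) or Day 4 replicate 6 (-1.86), nor under 9 of the other 10 settings (-1.81 to -2)) and SIG4 (AT5G13730, log2FC -2.27, SE 0.34, edgeR adjusted p = 6.9e-06; no call without Day 2 replicate 5 (-1.99)), which direct plastid transcription, fell. Of 86 tested plastid genes, 5 were downregulated and 0 upregulated (median -0.21, but 0.04 without Day 2 replicate 5; edgeR, with 9 higher at an unadjusted p under 0.05, DESeq2 0), and without Day 2 replicate 5, the library with the most plastid transcripts, 0 were. Beside psbG and psbM these were ATCG00420 (log2FC -2.3), ATCG00440 (-2.43) and ATCG00470 (-2.04; no call without Day 2 replicate 5 (-0.82), Day 4 replicate 5 (-1.73) or Day 4 replicate 6 (-1.96), nor under 7 of the other 10 settings (-1.59 to -2)). Of 121 mitochondrial genes, 2 were downregulated (median -0.80), ATMG00770 (no call without Day 2 replicate 5 (-1.87)) and ATMG00750 (no call without Day 2 replicate 5 (-1.99) or Day 4 replicate 6 (-1.82), nor in the 6 libraries alone (-2.32)). This was 1.65%, beside 2.88% of all genes. By the adjusted p alone 59 mitochondrial genes were lower and 7 higher, beside 24.4% and 23.2% of all genes. Their summed levels were 4832.3 to 7663 CPM at Day 2 and 4153.2 to 5424.2 CPM at Day 4, with days that overlapped.

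Genes of alternative respiration and oxidative stress were called in both directions. AOX1A (AT3G22370), the main alternative oxidase, had 543, 782 and 344 CPM at Day 2 and 184, 209 and 129 CPM at Day 4, below every Day 2 library at Day 4 and short of the fold criterion (log2FC -1.68, SE 0.23, edgeR adjusted p = 2.9e-06). NDA1 (AT1G07180), an alternative NADH dehydrogenase, fell from 19, 23.602 and 14.6 CPM to 2.64, 3.12 and 2.72 CPM (log2FC -2.73, SE 0.27, edgeR adjusted p = 3.8e-08). UPOX (AT2G21640) fell from 96.7, 204 and 71.2 CPM to 27.3, 37.6 and 23.3 CPM (log2FC -2.07, SE 0.29, edgeR adjusted p = 3.5e-06; no call without Day 2 replicate 5 (-1.51), Day 4 replicate 4 (-1.99) or Day 4 replicate 6 (-1.91), nor under 4 of the other 10 settings (-1.84 to -1.99)). AOX1B (AT3G22360), a minor oxidase, rose from 0.0838, 0.147 and 0.437 CPM to 6.12, 3.64 and 7.75 CPM (log2FC 4.58, SE 0.61, edgeR adjusted p = 3.9e-06). These were the 3 calls among 17 tested genes of that list. In the cutin and suberin list, 3 of 22 tested genes were upregulated and 3 downregulated. FAR5 (AT3G44550), a fatty acyl-CoA reductase of suberin, rose from 1.93, 0.147 and 10.1 CPM to 83.7, 47.5 and 100.2 CPM (log2FC 4.13, SE 0.7, edgeR adjusted p = 2.9e-05), and KCS2 (AT1G04220) had 0.168, 0.44 and 0.262 CPM at Day 2 and 1.74, 1.5 and 5.86 CPM at Day 4, a ratio of summed counts of 11.2, 95% counting interval 5.52 to 26.5, edgeR adjusted p = 0.00035, whereas GPAT5, GPAT7 (AT5G06090, means of 2.2 to 0.108 CPM) and ABCG6 (AT5G13580, means of 2.83 to 0.224 CPM) fell.

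**Figure D5:**
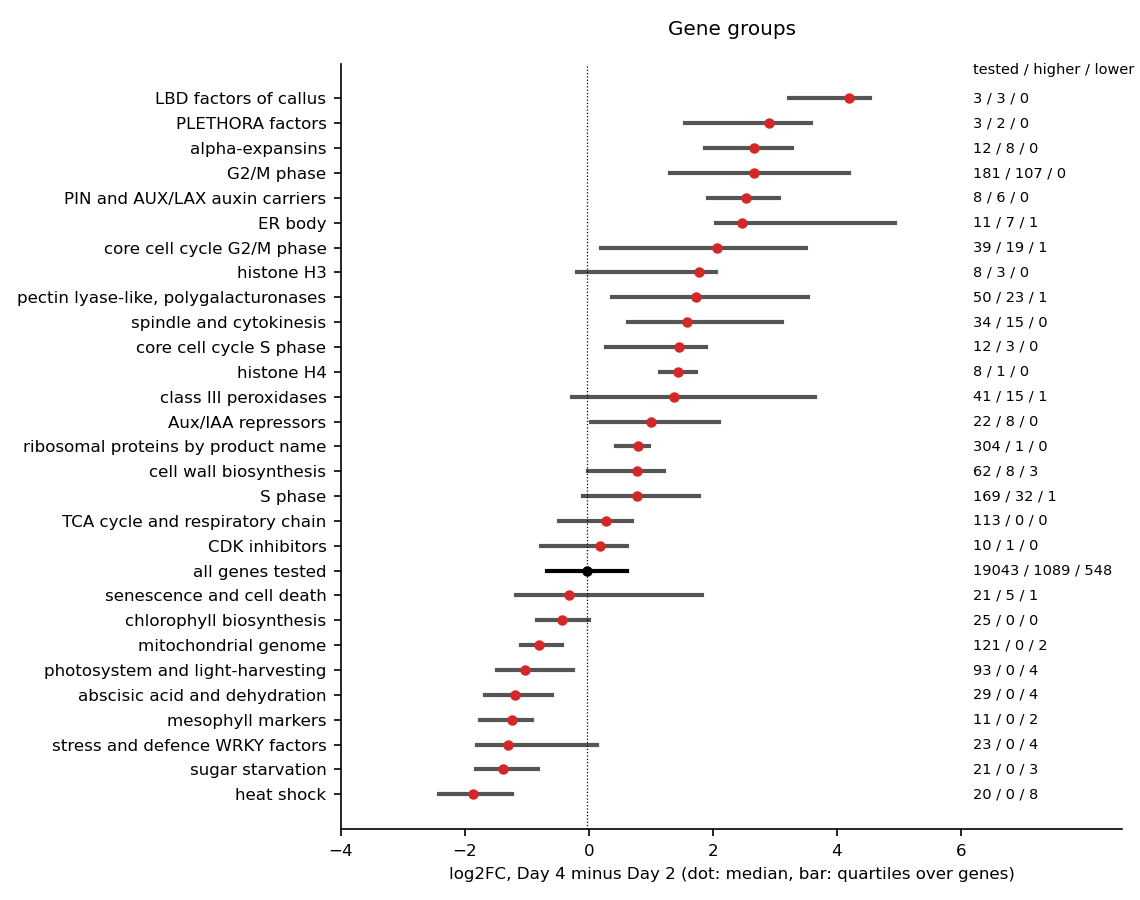
Median log2FC from Day 2 to Day 4 (dots) of selected gene lists, with bars for the quartiles over their genes and, at the right, the numbers of tested, upregulated and downregulated genes, beside the same for all 19043 genes tested. The LBD factors, the expansins and the G2/M phase list (2.66, 107 of 181 upregulated) lie to the right, and heat shock genes (-1.87) to the left.

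The position of this step in the time course can be read from the Day 0 and Day 6 libraries of the same experiment, with the reservation that the Day 2 libraries are also the end of the step before and the Day 4 libraries the start of the step after. The log2FC of the Day 2 to 4 step differed from that of the Day 4 to 6 step in 2207 genes (11.6% of those tested, edgeR adjusted p under 0.01), 1568 (8.23%) with the former above the latter and 639 (3.36%) below it. That count ran from 924 without Day 4 replicate 4 to 3942 without Day 2 replicate 6, with 1351 without Day 4 replicate 5 and 1274 without Day 4 replicate 6. MCM3 was at 0 to 0.149 CPM at Day 0 and 36.2 to 43.4 CPM at Day 6, and CYCB1;2 at 0.122 to 0.483 and 30.3 to 37.1 CPM. Both were higher again at Day 6. The cell cycle lists as wholes did not start from such low levels. The G2/M phase list summed to 560.5 to 629.6 CPM at Day 0 and 349.8 to 429.1 CPM at Day 2. Spindle and cytokinesis genes summed to 1580 to 1872 and 506.8 to 720.1 CPM, and the S phase list to 3837 to 5001.3 and 2475.8 to 2995.7 CPM. The core S phase list went the other way, with 49.9 to 59.4 and 113 to 133.5 CPM. LBD29 was at 0 CPM in every Day 0 library and at 0.818 to 3.6 CPM at Day 6, WOX5 at 0 to 0.299 and 1.71 to 4.95 CPM, and SWEET9 at 0 to 0.146 and 2.53 to 7.7 CPM, all 3 below their Day 4 libraries on both days. Among falling genes, HSP101 had 6654 to 16335 CPM at Day 0 and 68.8 to 87.1 CPM at Day 6, and WRKY33 961 to 1767 and 85.1 to 91.2 CPM, in both cases with Day 6 below every Day 4 library, whereas DIN2, at 27.4 to 74.1 CPM at Day 0 and 328 to 396 CPM at Day 6, was highest at Day 2.

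A further set of Day 4 control libraries, replicates 9 to 11 of a separate table, was set beside the Day 2 range on total-count CPM. No test was made, because these libraries were not part of the fit. For the Day 2 to 4 step, total-count scaling raised the median log2FC of all genes by 0.176 against TMM. Rises and falls are therefore not on equal terms on this scale. All 15 of the largest rises were above the Day 2 range in these 3 libraries and 9 of the 15 largest falls were below it. Of the 1089 upregulated genes 934 (85.8%) were above it, against 24.3% of all genes tested, and of the 548 downregulated genes 268 (48.9%) were below it, against 13.1%. The same Day 2 libraries served both sets, so this is no independent measure of Day 2.

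Markers of other cell types that a leaf preparation could hold differed widely in level. At most 3 counts in every one of the 6 libraries were seen for 3 guard cell and stomatal markers (MUTE, SPCH and EPF2), 5 vasculature markers (VND6, VND7, SWEET11, PP2-A1 and NAKR1) and 4 epidermis markers (PDF1, PDF2, WIN1 and TTG2). Others were well detected. TGG1, a myrosinase of guard cells, was at 220 to 303 CPM at Day 2 and 171 to 427 CPM at Day 4, AHA3 of the vasculature list at 90.9 to 191 and 166 to 188 CPM and FATB of the epidermis list at 66.3 to 77 and 82.1 to 90.7 CPM, next to 85.6 to 100.2 and 28.8 to 34.7 CPM for the mesophyll marker LHCB1.2. FAMA, a regulator of guard cells, was at 8.65 to 14.5 and 4.19 to 8.67 CPM. Of 12 tested guard cell markers, 1 was upregulated, MYB60 (AT1G08810) with 1.01, 0.293 and 0.262 CPM at Day 2 and 7.4, 4.74 and 14 CPM at Day 4 (log2FC 3.93, SE 0.64, edgeR adjusted p = 1.7e-05). This was 8.33% of those tested, beside 5.72% of all genes. At Day 4, 3 of the 12 lay above their Day 2 range and 2 below it, beside 31.5% of all genes in each direction. Lower were SLAC1 (1.34 to 2.05 CPM at Day 2 and 0.231 to 0.755 CPM at Day 4) and SCRM2 (2.18 to 2.64 and 0.636 to 1.21 CPM). The guard cell list summed to 333 to 477 CPM at Day 2 and 254 to 568 CPM at Day 4. Of 13 vasculature markers, 1 was upregulated, SUC2 (AT1G22710), a phloem sucrose carrier, with 0.503, 0.293 and 0.787 CPM at Day 2 and 25.3, 17.57 and 23.8 CPM at Day 4 (log2FC 5.28, SE 0.42, edgeR adjusted p = 1.7e-09), and that list summed to 118 to 222 CPM and 235 to 286 CPM. By the adjusted p alone 6 of the 13 were higher and 0 lower, beside 23.2% higher and 24.4% lower of all genes tested. Among the 6 were ATHB15 with 8.3 to 11 CPM at Day 2 and 26.9 to 55.1 CPM at Day 4 and ATHB8 with 1.03 to 2.53 and 4.91 to 9.01 CPM. The scarce XCP1 and XCP2 of the same list were lower at Day 4, with 0.35 to 2.2 and 0 to 0.14 CPM and with 0.262 to 1.17 and 0 to 0.151 CPM. The 1 call was 7.69% of the vasculature markers tested, beside 5.72% of all genes. Epidermis markers summed to 89.9 to 109.5 CPM at Day 2 and 120.1 to 129 CPM at Day 4, with 0 of 8 tested genes called (edgeR; 1 higher and 0 lower at an unadjusted p under 0.05, DESeq2 0). The part of other cell types in the results above was not tested.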

How the data were processed

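The deposited tables held raw read counts per splice variant, which the authors made by mapping single-end reads of stranded mRNA libraries with Bowtie 0.12.9 to TAIR10, with mapped reads in a header line; the counting tool is not given in the sources used here. The lowest-numbered variant of each locus was taken. These counts summed to 103% to 103.6% of the mapped reads of the 6 libraries, so some reads were counted at more than 1 locus and near-identical copies are uncertain. Day 2 and Day 4 control replicates 4 to 6 were compared in a fit of the 26 libraries of replicates 4 to 8, which share 1 estimate of the spread.

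Genes were filtered with filterByExpr, scaled by TMM and tested with the quasi-likelihood test of edgeR 4.0.16 (R 4.3.3, limma 3.58.1), without a replicate block, of which the study's methods make no mention. Calls needed a log2FC over 2 in size with p and adjusted p under 0.01. The SE is the size of the log2FC divided by the square root of F. CPM were computed from the counts. For genes with no count in any Day 2 library, the fold is a bound against 3 counts per library, and for genes with up to 3 counts the ratio of summed counts has a 95% interval. Bounds and intervals cover counting error only. On simulated counts for the Day 4 and Day 2 libraries with 18935 genes, 200 of 200 genes changed by 8-fold were recovered, with 0 false calls. The changed genes were drawn only from those above a minimum Day 2 level, and the spread followed the smooth trend of the fit. Many upregulated genes were scarcer and the Day 2 libraries uneven, so this recovery does not carry over to the calls above.

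Named genes were the 15 largest rises and falls with at least 10 CPM and days that did not overlap, up to 4 called members per list and direction with at least 3 CPM, and 58 fixed genes; others are said to be chosen after their values were seen, and 1 named gene is not reported here. Members and lists were chosen with earlier results of these data known, and 5 lists made by product name (extensin, arabinogalactan or hydroxyproline-rich proteins, aspartyl proteases, pectin lyase-like proteins, proteasome subunits and tubulins) after values were seen. Promoters came from RefSeq (TAIR10.1). Alternatives were a replicate block, the 6 libraries alone, DESeq2 1.42.0, the likelihood-ratio test, other scalings, no filter, summed variants, nuclear loci and leaving out each library.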

Additional observations from a re-analysis of the deposited data

Results flagged for a closer look

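The change of 18 of the 30 genes with the largest rises and falls differed from the change of the same gene in the Day 4 to 6 step, by edgeR's test of the difference between the 2 steps over all genes (adjusted p under 0.01). Over all genes tested the share was 11.6%, but the 30 genes were chosen for a large change in the first step, so their count is largely set by that choice and supports nothing. The steps share the Day 4 libraries, so a high or low Day 4 value enters both with opposite sign. Differences are the log2FC of Day 2 to 4 minus that of Day 4 to 6, and for genes at 0 to 3 counts at Day 2 their size depends on the prior count of the fit. The difference was 11.07 for AT1G10640 (SE 1.33, edgeR adjusted p = 8.5e-06, log2FC of the later step 0.56), 11.79 for SWEET9 (SE 1.17, edgeR adjusted p = 1.3e-06, log2FC of the later step -1.5) and 10.5 for AT1G67750 (SE 1.49, edgeR adjusted p = 4.8e-05, log2FC of the later step -0.24). The difference was 6.24 for CEP1 (SE 1.35, edgeR adjusted p = 0.0027, log2FC of the later step 2.0), 7.05 for AT3G20370 (SE 0.93, edgeR adjusted p = 3.2e-05, log2FC of the later step 0.6) and 5.95 for AT3G02120 (SE 1.33, edgeR adjusted p = 0.0035, log2FC of the later step 1.68). The difference was 6.86 for FAD-BD (SE 0.86, edgeR adjusted p = 8.5e-06, log2FC of the later step 0.77), 7.49 for AT5G22430 (SE 1.08, edgeR adjusted p = 8.7e-05, log2FC of the later step -0.17) and 5.08 for PGAZAT (SE 0.77, edgeR adjusted p = 7.1e-05, log2FC of the later step 2.23). The difference was 5.83 for CSLD5 (SE 1.03, edgeR adjusted p = 0.00037, log2FC of the later step 1.36), 5.62 for AT1G62760 (SE 1.08, edgeR adjusted p = 0.00077, log2FC of the later step 1.57) and 6.6 for AT4G13210 (SE 0.68, edgeR adjusted p = 3.4e-06, log2FC of the later step 0.32). The difference was 5.53 for AT5G14650 (SE 0.81, edgeR adjusted p = 4.7e-05, log2FC of the later step 1.33), 5.65 for CYP709B2 (SE 0.97, edgeR adjusted p = 0.00027, log2FC of the later step 1.2) and 5.78 for AT2G19970 (SE 0.67, edgeR adjusted p = 3.8e-06, log2FC of the later step 1.07). Among the falls it was -2.88 for GPAT1 (SE 0.67, edgeR adjusted p = 0.0034, log2FC of the later step -1.97), -2.84 for AT1G51830 (SE 0.45, edgeR adjusted p = 0.00013, log2FC of the later step -1.2), -4.8 for AT1G23720 (SE 1.02, edgeR adjusted p = 0.0024, log2FC of the later step 1.0). AT1G23720 thus had a positive value in the later step after its fall, whereas GPAT1 and AT1G51830 had negative values in both.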

How the results depend on the processing

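No named gene with a call reversed its direction under the alternatives run. Medians of gene lists that changed sign were all between -0.25 and 0.24 with the settings of the report, except that of the 5 seed and embryo genes, which was 0.92 and became 0 without a filter. The plastid genome's median of -0.21 became 0.04 without Day 2 replicate 5. The 1089 higher genes became 940 to 1239 and the 548 lower genes 369 to 568 over the settings that kept all 6 libraries, with the extremes from the 6 libraries fitted alone (940 and 396), total counts (1239 and 369), no filter on low counts (1160 and 568) and the likelihood-ratio test (1174 and 568). DESeq2 called 1193 and 488, size factors in place of TMM 1171 and 459, summed splice variants 1137 and 522, and nuclear loci alone 1147 and 489. Leaving out 1 library in turn gave 931 to 1291 higher genes and 347 to 821 lower genes, with 347 without Day 2 replicate 5 and 821 without Day 2 replicate 6. The 2207 genes that differed from the Day 4 to 6 step became 1986 to 3286 and the 7519 that differed from the Day 0 to 2 step 7334 to 8786 over the settings that kept all 6 libraries, and 924 to 3942 and 5778 to 7711 with 1 library left out. Of 240 named genes, 43 lost their call without Day 2 replicate 5, 31 without Day 4 replicate 6 and 2 to 25 under the other settings, and ASN1 and MYB3R5 gained one without Day 2 replicate 6. The cause was not tested.

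The labels give both days the replicate numbers 4 to 6. Deviations from the day means correlated at 0.078, 0.235 and 0.291 between libraries of the same number (mean 0.201) and at a mean of -0.098 between other numbers. Since replicate 4 fell short of 0.1, the numbers were not taken as pairs, although every library correlated best with its own number. With the replicate block, 1139 genes were higher and 526 lower, and 10 named genes lost their call, and in the 6 libraries alone with the replicate block the counts were 1025 and 436. A count of 0 in a library limits a level only to about 0.3 CPM at Day 2 and 0.2 CPM at Day 4, so changes of scarcer genes could not be seen at this depth.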

Other observations

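Pigment and plastid division genes had few calls. Of 25 tested genes of chlorophyll biosynthesis, 0 were called (edgeR; 3 higher and 13 lower at an unadjusted p under 0.05, DESeq2 0), with a median log2FC of -0.43, and of 12 of the chlorophyll cycle and breakdown, 0 (1 higher and 8 lower, DESeq2 0; median -0.68). Of 18 genes of chloroplast fission, 0 were called (edgeR; 3 higher and 8 lower at an unadjusted p under 0.05, DESeq2 0). In secondary metabolism 0 of 4 flavonoid genes (1 higher and 0 lower by the same p, DESeq2 0) and 0 of 19 phenylpropanoid genes (2 higher and 4 lower, DESeq2 0) were called by edgeR.

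Among chromatin regulators, 0 of 14 Polycomb genes were called (edgeR; 4 higher and 4 lower at an unadjusted p under 0.05, DESeq2 0). The acetyltransferase gene HAC2 (AT1G67220, means of 1.6 to 0.0929 CPM) was the 1 downregulated of 11, beside 2.88% of all genes. The deacetylase gene HDA18 (AT5G61070, means of 0.106 to 0.667 CPM) was the 1 upregulated of 17, beside 5.72%. By the adjusted p alone 1 acetyltransferase gene was higher and 7 lower, beside 23.2% and 24.4% of all genes. For deacetylase genes the counts were 5 and 1. The acetyltransferase list summed to 463.5 to 839 CPM at Day 2 and 326.6 to 339.8 CPM at Day 4, the deacetylase list to 573.3 to 676.6 and 798.2 to 902.5 CPM. Single rises were also seen in LEC1 (AT1G21970, means of 0.0559 to 0.809 CPM), an embryo regulator, in CUC1 (AT3G15170, means of 0 to 0.442 CPM), of organ boundaries, and in SAD6 (AT1G43800, means of 0.372 to 2.88 CPM), a hypoxia-induced desaturase. The genes of this paragraph were chosen after their values were seen, and LEC1 remained under 1 CPM.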
